A study of Mus musculus with 18 samples.

Results

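This section describes the voltage-gated sodium and calcium channel genes in nuclei of the hippocampus (Hip) and of prefrontal cortex (PFC), read by single-nucleus RNA-seq in mice raised with and without a gut microbiota. The members are every gene whose symbol begins with Scn, a number and the letter a or b, or with Cacna, Cacnb or Cacng, and 40 of the 30905 genes in the files met this rule, which used no measured value. The 38 described here are 9 sodium channel pore genes, 3 sodium channel beta genes, 10 calcium channel pore genes (4 of L type, 3 of P/Q, N and R type and 3 of T type), 4 alpha2delta genes, 4 calcium channel beta genes and 8 gamma genes. All animals were Kun Ming mice, an outbred stock, taken at 8 weeks of age. Germ-free (GF) mice had no microbiota, specific pathogen free (SPF) mice carried one, and colonized GF (CGF) mice were GF mice reared with SPF mice during the last 4 weeks of life. Each group had 3 mice, and both regions of each mouse gave a library, for 18 libraries in all, and a mouse is named by its group and number (GF 5). GF and CGF mice lived in isolators and SPF mice did not, so housing and microbiota cannot be told apart between GF and SPF mice. The labels do not give the sex of the mice.

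The 18 libraries kept 5710 to 9055 nuclei and were sequenced to unequal depth. In Hip they held 49067853 to 63217083 UMIs (unique molecular identifiers, each standing for 1 captured RNA molecule), with the groups overlapping, whereas in PFC the GF libraries held 59126586 to 71463928 UMIs and the SPF and CGF libraries 20336250 to 26949210. The nuclear RNA Malat1 took 6.32 to 7.32% of UMIs in GF libraries and 2.91 to 3.87% in the others, and the ribosomal RNA-derived transcript Gm42418 took 0.0118 to 0.032% in GF libraries and 0.0575 to 2.41% in the others. Mitochondrial transcripts took 0.645 to 1.1% in GF libraries of Hip against 0.077 to 0.471% in the other libraries of Hip, and 0.359 to 0.594% in GF libraries of PFC against 1.28 to 3.22% in the others. They were thus higher in GF libraries of Hip and lower in those of PFC. The GF libraries stood apart from the SPF and CGF libraries in RNA makeup in both regions, and the part of this in the differences between groups was not tested. In PFC they were nearer to the Hip libraries than to the SPF and CGF libraries in depth and Gm42418, and a difference in how libraries were made, on which the labels are silent, cannot be told apart from the group there. Between 0.0858 and 0.367% of the barcodes of the smaller library of a pair occurred in both.

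Each cell type name stands for clusters that resemble that type by its markers (excitatory neurons by Slc17a7 and Nrgn, interneurons by Gad1 and Gad2, astrocytes by Aqp4 and Slc1a3, oligodendrocytes by Mog and Mag, oligodendrocyte precursor cells or OPC by Pdgfra and Vcan, microglia by Csf1r and Cx3cr1), and "-like" is to be read with every name. Between 4 and 8 markers of a type were higher in that type than in the other 5 types in every library, including all 8 for microglia and 4 of 8 for excitatory neurons. A library held 3675 to 5578 excitatory neurons in Hip and 3443 to 4739 in PFC, 389 to 563 and 642 to 994 interneurons, and 196 to 333 and 108 to 372 microglia. The PFC libraries also held 14 to 1005 nuclei resembling striatal medium spiny neurons, which were kept out of the excitatory neurons and interneurons. OPC clusters also carried markers of newly formed oligodendrocytes, and at a finer clustering (Leiden resolution 2) nuclei named so made up 15.5% (GF), 10.5% (SPF) and 8.56% (CGF) of the OPC of Hip and 11, 9.86 and 6.9% of those of PFC.

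In each of the 6 types, GF nuclei lay largely in other clusters than SPF and CGF nuclei. The type name joins these clusters, so a comparison of GF with SPF mice within a type also compares clusters. In Hip, clusters with mostly GF nuclei held 98.1% of GF, 0.323% of SPF and 0.595% of CGF astrocytes (cluster 14, the others being in cluster 2). For oligodendrocytes the shares were 98.8, 0.143 and 0% (17, the others in 4), for OPC 95.8, 11.7 and 8.85% (24, the others in 21) and for microglia 97.2, 0.334 and 0.152% (25, the others in 18). They were 94.4, 7.92 and 4.68% for interneurons (16, the others in 6) and 83.3, 6.77 and 4.29% for excitatory neurons (4 of 13 clusters: 1, 5, 8 and 11). In PFC the shares in the same order of groups were 97.6, 1.65 and 3.11% for astrocytes (13, the others in 6), 88.2, 8.27 and 11.6% for oligodendrocytes (19, the others in 16) and 96.6, 4.64 and 8.89% for OPC (26, the others in 23). Microglia of PFC had 95.8, 20.6 and 27.8% (17, the others in 24), interneurons 91.3, 4.58 and 4.52% (10, the others in 2) and excitatory neurons 62.4, 8.59 and 7.15% (4 of 12 clusters: 8, 9, 11 and 12). The neuron subtypes used below come from a second clustering with library means removed. Clusters left unnamed held 5.49 to 12.9% of the nuclei of a GF library and 3.72 to 7.62% of those of the others. How far the clusters, the RNA makeup of the libraries and the microbiota each enter the differences was not tested.

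Voltage-gated sodium channels open when the membrane depolarizes and carry the rising phase of the action potential. A large pore protein forms the channel, and small beta subunits tune its gating and hold it at the membrane. Voltage-gated calcium channels are built on a related pore: L type channels couple activity to gene expression, P/Q, N and R type channels trigger transmitter release and carry dendritic calcium, and T type channels open near rest and shape burst firing. The alpha2delta subunits carry the high-voltage channels to the surface and are the target of gabapentinoid drugs, the beta subunits bind the pore from inside the cell, and most of the gamma genes expressed in brain encode TARPs, which are auxiliary subunits of AMPA receptors and not of calcium channels.

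The 38 genes together took a smaller share of UMIs in GF mice than in SPF mice in all 6 major cell types of both regions. In excitatory neurons their summed UMIs were 0.928 ± 0.0219% (SD, n = 3) of all UMIs in SPF mice, 0.749 ± 0.0202% in GF mice and 0.956 ± 0.024% in CGF mice of Hip, and 0.871 ± 0.0106%, 0.738 ± 0.0209% and 0.901 ± 0.0231% in PFC. The interneurons of Hip held 0.746 ± 0.0107% in SPF mice, 0.613 ± 0.0179% in GF mice and 0.735 ± 0.0147% in CGF mice, beside 0.738 ± 0.0143%, 0.608 ± 0.0113% and 0.732 ± 0.0196% in PFC. No GF mouse reached the lowest SPF mouse in any of the 6 types of either region, and the ranges of CGF and SPF mice overlapped in each. In microglia of PFC the CGF mice spread over both other groups, at 0.345, 0.283 and 0.242% beside 0.313 to 0.355% in SPF and 0.241 to 0.269% in GF mice. Glia held less: the share in Hip of SPF mice was 0.431 ± 0.014% in OPC, 0.371 ± 0.0302% in microglia, 0.25 ± 0.0362% in oligodendrocytes and 0.218 ± 0.0377% in astrocytes.

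**Figure D1:**
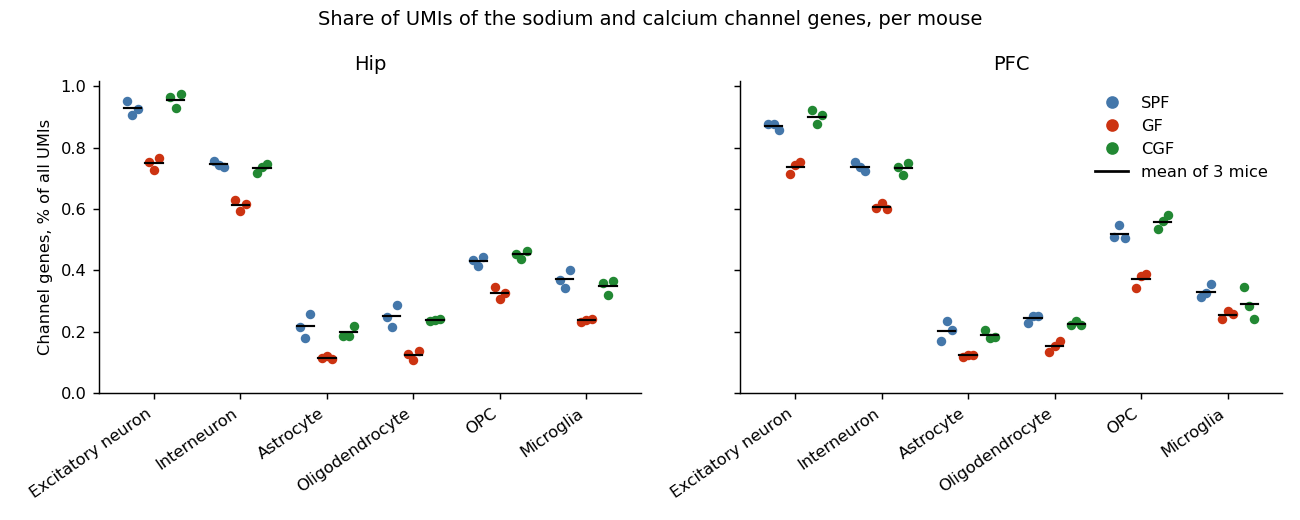
Share of all UMIs of a cell type that fell on the 38 channel genes (y axis, percent), for 6 cell types (x axis) in Hip and PFC, with a point for each mouse coloured by group and a line at the mean of 3 mice. The GF points lie under all SPF points in every type, and excitatory neurons hold the highest shares in both regions.

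Several sodium channel pores carried most of the sodium channel RNA of neurons, and each had its own distribution over cell types. Scn2a, the pore of excitatory axons and early development, stood at 387 ± 30.5 CPM (CPM are counts scaled to a total of 1e6 UMIs of the type, mean ± SD over the 9 mice of a region) in excitatory neurons of Hip and 508 ± 113 CPM in PFC. Scn8a, which drives spike initiation at the axon initial segment and at nodes, stood at 466 ± 27.6 CPM and 500 ± 67.6 CPM. Scn1a, the pore on which fast-spiking interneurons depend and the gene mutated in Dravet syndrome, was highest in Pvalb interneurons, at 546 ± 52.9 CPM in Hip and 603 ± 67.9 CPM in PFC, beside 215 ± 37.8 CPM and 300 ± 76.9 CPM in excitatory neurons. Per 100 kb of gene span, the excitatory neurons of Hip held 265 CPM of Scn8a, 264 of Scn2a, 126 of Scn1a and 125 of Scn3a. This scale takes counts to grow with gene span, which was not tested. Over the 9 mice, Scn8a (236 to 279) and Scn2a (232 to 286) overlapped, and so did Scn1a (94.7 to 151) and Scn3a (94.1 to 152). In interneurons of Hip the order on this scale was Scn1a at 255, Scn2a at 230, Scn8a at 179 and Scn3a at 85.1 CPM per 100 kb. There Scn1a (204 to 298) overlapped Scn2a (195 to 256), which overlapped Scn8a (165 to 200), and Scn3a (58.8 to 100) lay below all of them.

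The promoters of these pores are shown because Scn1a, Scn2a and Scn8a fell together in GF mice in both regions in excitatory neurons. Each sequence is the 250 bases before the RefSeq transcription start, 5′ to 3′, on GRCm38.p6, and capitals mark the Egr box GCGGGGGCG.
Scn1a (chr2:66440838-66441087, minus strand): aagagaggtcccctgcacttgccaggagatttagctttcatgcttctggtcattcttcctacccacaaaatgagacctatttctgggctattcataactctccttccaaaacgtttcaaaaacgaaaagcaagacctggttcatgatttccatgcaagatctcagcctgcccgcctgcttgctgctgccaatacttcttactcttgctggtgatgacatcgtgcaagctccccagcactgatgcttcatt
Scn2a (chr2:65620519-65620768, plus strand): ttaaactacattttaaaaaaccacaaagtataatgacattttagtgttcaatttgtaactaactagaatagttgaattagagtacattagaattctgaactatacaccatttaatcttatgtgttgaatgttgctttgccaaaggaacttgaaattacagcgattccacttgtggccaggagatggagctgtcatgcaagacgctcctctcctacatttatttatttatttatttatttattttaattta
Scn8a (chr15:100870395-100870644, plus strand): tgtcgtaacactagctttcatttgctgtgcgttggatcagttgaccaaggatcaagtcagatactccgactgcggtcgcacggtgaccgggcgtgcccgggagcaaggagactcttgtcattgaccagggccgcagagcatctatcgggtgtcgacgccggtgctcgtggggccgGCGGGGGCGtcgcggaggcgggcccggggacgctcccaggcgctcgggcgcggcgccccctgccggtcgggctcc

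The promoter windows differed in base composition, with a GC content of 46.8% for Scn1a, 29.6% for Scn2a and 68% for Scn8a. Of the 38 genes, 30 had an entry in the RefSeq promoter table, with 41 windows in all. On either strand, the Egr box GCGGGGGCG occurred in 4 member windows (Cacna1b, Cacna2d1, Cacna2d2 and Scn8a) and in 2.57% of all 32851 windows. The GC box GGGGCGG, which can overlap it, occurred in 11 member windows and 21% of all. The E-box CAGCTG was found in 11 and 13%, and the TATA box TATAAA in 2 and 12.4%. Those 2 windows belong to Cacna1d and to the other of the 2 Scn2a starts in the table, so the Scn2a sequence above does not hold it. These matches describe the letters of the windows and were not set against binding data.

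The remaining sodium channel pores had these levels. Scn3a, a pore of developing neurons, was highest in dentate granule neurons at 230 ± 40.5 CPM and in OPC at 149 ± 31.8 CPM in Hip. Scn9a, known from pain-sensing neurons, was higher in interneurons than in excitatory neurons of Hip, at 210 ± 52.3 CPM in Pvalb interneurons and 141 ± 31 CPM in Cck interneurons of Hip beside 21.4 ± 2.81 CPM in excitatory neurons. Scn7a, which encodes a sodium-sensing channel (Nax) of salt-sensing glia, was at 82.2 ± 40.9 CPM in ependymal cells and 47.1 ± 15.3 CPM in mid layer neurons of PFC. Scn4a of skeletal muscle and Scn10a and Scn11a of sensory neurons were near the floor, with 0.284, 0.284 and 0.0985 CPM in excitatory neurons of PFC.

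The sodium channel beta genes had their highest levels in different cell types. Scn2b, the beta2 gene, was highest in microglia of Hip, at 79.4 ± 16.2 CPM beside 35.7 ± 9.15 CPM in excitatory neurons. This was 222% of its level in excitatory neurons, where the neuronal gene Nrgn reached 293% in the same nuclei, and the part of neuronal RNA in the value was not tested. Scn3b was highest in dentate granule neurons at 149 ± 30.6 CPM. Scn4b, whose product makes resurgent current in fast-firing cells, reached 20.7 ± 3.93 CPM in near-projecting neurons of PFC, under the 35 ± 65.8 CPM of the nuclei resembling striatal neurons.

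The high-voltage calcium channel pores differed in their distribution over cell types. Cacna1e, the R type pore, stood at 974 ± 151 CPM in excitatory neurons and 117 ± 24.9 CPM in interneurons of Hip, and at 679 ± 122 CPM and 213 ± 54.3 CPM in PFC. Cacna1b, the N type pore, was highest in Cck interneurons, at 648 ± 150 CPM in PFC and 589 ± 57.4 CPM in Hip. Cacna1a, the P/Q type pore, was high in most neurons, from 615 ± 46.6 CPM in excitatory neurons of Hip to 1040.6 ± 123 CPM in Pvalb interneurons of PFC. The L type pore Cacna1c had its top value in mural cells of PFC, 1942.0 ± 503 CPM, where it serves vascular smooth muscle, followed by dentate granule neurons at 1422.2 ± 227 CPM. Cacna1d, the other L type pore of brain, was highest in layer 6 corticothalamic neurons at 677 ± 88.7 CPM. The L type genes Cacna1s of skeletal muscle and Cacna1f of retina stayed at 0.105 and 1.8 CPM in excitatory neurons of Hip. Among the T type pores, Cacna1g was at 143 ± 51.2 CPM and Cacna1i at 160 ± 53.1 CPM in mid layer neurons of PFC, while Cacna1h was highest in dentate granule neurons at 87.4 ± 22.5 CPM. Per 100 kb, the excitatory neurons of Hip held 244 CPM of Cacna1a, 197 of Cacna1e, 150 of Cacna1c and 130 of Cacna1b, and those of PFC 333, 138, 113 and 183 in the same order of genes.

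The alpha2delta genes divided the interneurons. Cacna2d1, the main gabapentinoid target, was at 2096.2 ± 237 CPM in Lamp5 interneurons and 59.6 ± 20.1 CPM in Pvalb interneurons of Hip, and at 1089.1 ± 137 CPM and 63.3 ± 16.2 CPM in PFC. Cacna2d2 ran the other way, with 274 ± 45.7 CPM in Pvalb interneurons of Hip and 276 ± 57 CPM in those of PFC, against 5.76 ± 0.989 CPM in excitatory neurons of Hip. Cacna2d3 was highest in Sst interneurons, at 2319.8 ± 495 CPM and 1790.3 ± 251 CPM, and lowest among neurons in layer 6 corticothalamic neurons at 71.8 ± 17.6 CPM. Cacna2d4 was an oligodendrocyte gene, at 53.6 ± 13.9 CPM in Hip and 55.5 ± 17.3 CPM in PFC beside 4.49 ± 2.05 CPM in excitatory neurons of Hip.

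Of the calcium channel beta genes, Cacnb2 was highest in CA1 pyramidal neurons at 2414.3 ± 381 CPM, and excitatory neurons as a whole held 1483.3 ± 310 CPM in Hip and 338 ± 47 CPM in PFC. Cacnb4, whose loss gives the ataxic lethargic mouse, was highest in near-projecting neurons of PFC at 1698.6 ± 121 CPM and in choroid plexus cells at 1635.6 ± 364 CPM, the latter over the 7 Hip libraries that held such cells. Cacnb3 was highest in upper layer neurons of PFC at 122 ± 58.3 CPM and Cacnb1 in layer 6 corticothalamic neurons at 77.6 ± 26.1 CPM. Among the gamma genes, the TARP gene Cacng4 marked OPC at 576 ± 87.1 CPM in Hip and 1182.7 ± 406 CPM in PFC, far above 2.44 ± 0.796 CPM in excitatory neurons of Hip. Cacng2, which encodes stargazin, was highest in Pvalb interneurons of PFC at 280 ± 33.7 CPM. Cacng3 was highest in upper layer neurons of PFC at 407 ± 23.2 CPM and Cacng8 in CA1 pyramidal neurons at 149 ± 25 CPM. Cacng1, which belongs to the skeletal muscle channel, and Cacng6 stayed at 0.258 and 2.21 CPM in excitatory neurons of Hip. These levels are a description with no test, since the clusters were made from the same nuclei. Assigning nuclei by their own markers moved 17 to 23 members of a glial type and region by more than 1 SD over mice, 7 in interneurons of each region, and 10 and 1 in excitatory neurons of Hip and PFC. With it Cacng4 in OPC stood at 376 ± 56.7 CPM in Hip and 496 ± 214 CPM in PFC, Cacna2d4 in oligodendrocytes of PFC at 36.4 ± 9.7 CPM and Scn2b in microglia of Hip at 59.6 ± 15.5 CPM.

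**Figure D2:**
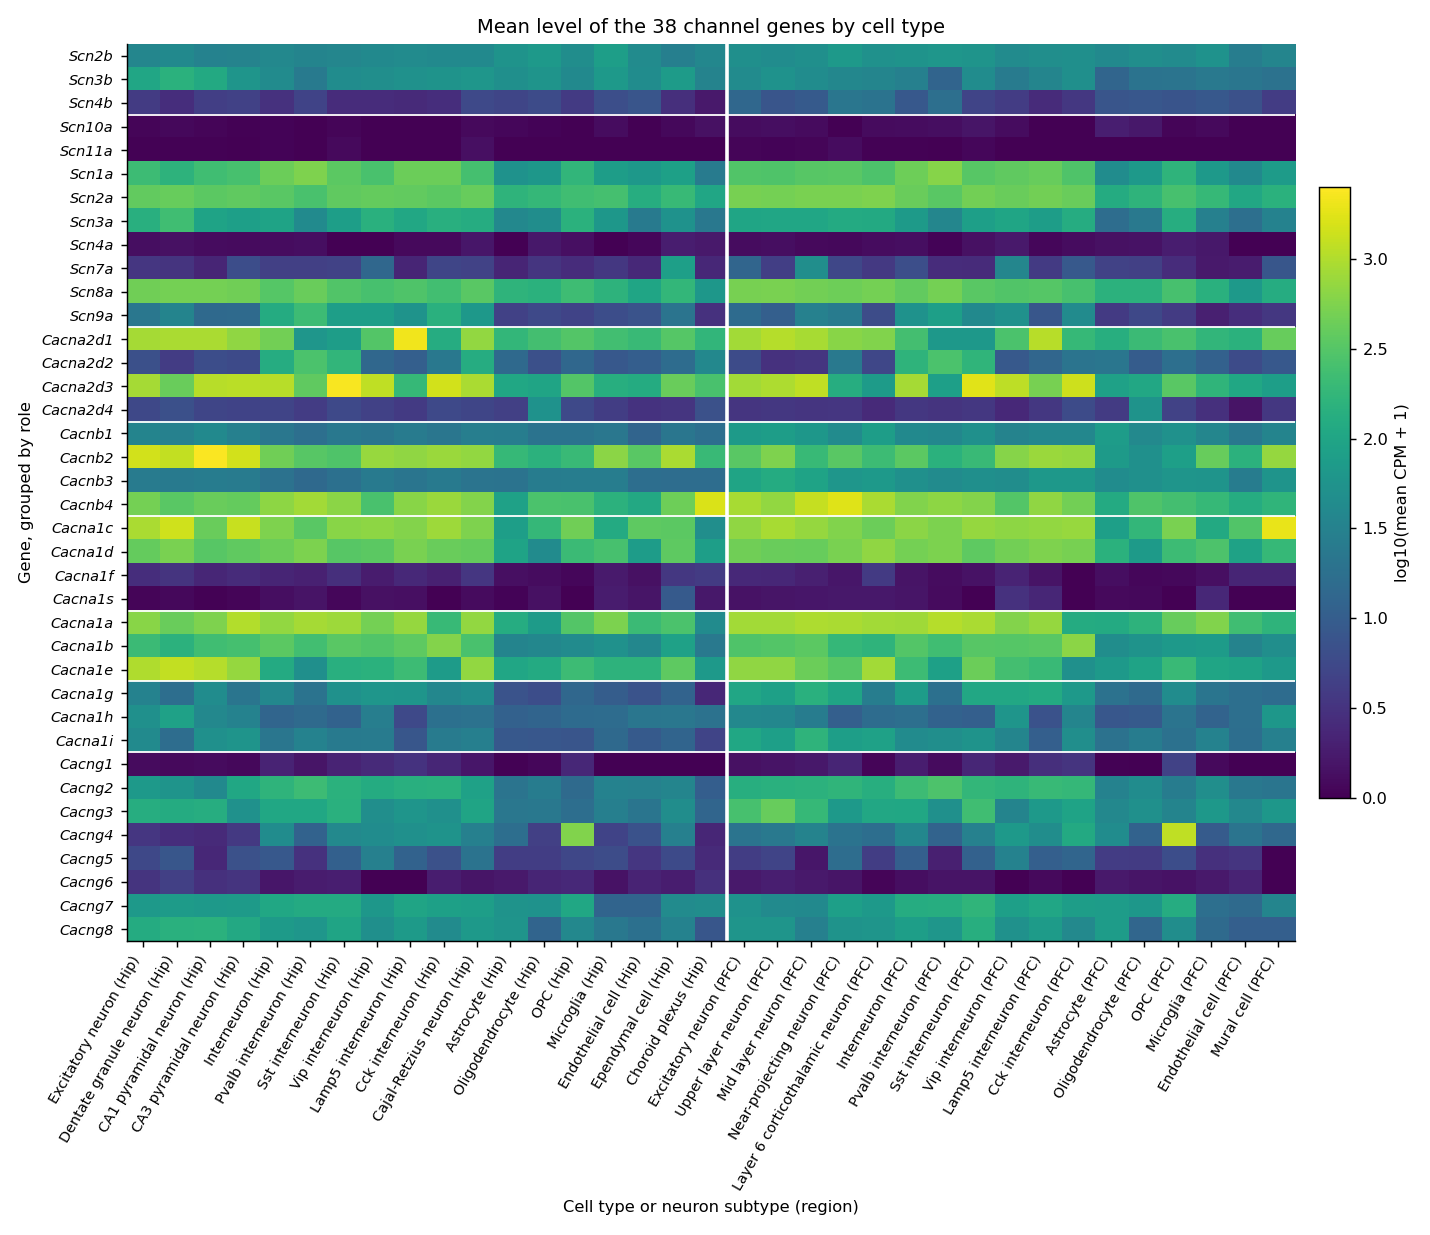
Mean level of each of the 38 genes (rows, grouped by role) in cell types and neuron subtypes of Hip and PFC (columns), as log10 of CPM + 1 over the mice of a region, with colour from 0 (dark) to 3.4 (yellow). Cacng4 stands out in OPC, Cacna2d1 in Lamp5 interneurons, Cacna2d3 in Sst interneurons, Cacnb2 in CA1 pyramidal neurons, and Scn4a, Scn10a and Scn11a are dark throughout.

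Excitatory neurons of Hip and PFC differed in 18 channel genes in SPF, GF and CGF mice alike, of which 10 were calcium channel beta or gamma genes and 1 was a sodium channel pore gene. With the length and GC correction the 18 genes called held 9 beta or gamma genes and 3 sodium channel pore genes, and with library totals 8 and 2. In these cells 6 of the 37 members tested were higher in Hip and 12 lower in Hip with an adjusted p under 0.05 in SPF, GF and CGF mice alike, where 9.8% of all genes tested were higher and 8.61% lower by the same rule. Adjusted p-values come from edgeR's quasi-likelihood test on UMIs summed per mouse, with Benjamini-Hochberg adjustment over all genes of a fit, and a gene is called where this p is under 0.05. Excitatory neurons of Hip and PFC are different subtypes, so this compares the regions' mixtures of cells. The SPF and CGF libraries of Hip also differed from those of PFC in depth and Gm42418, and the part of this was not tested. In single groups 33 (SPF), 24 (GF) and 30 (CGF) of the 37 members were called between the regions. Of all genes 68.2, 33.9 and 69.3% were called in the same order of groups. Cacnb2 was the member with the highest Hip to PFC ratio, with log2 fold changes of 2.54 ± 0.12 (SPF), 1.64 ± 0.12 (GF) and 2.52 ± 0.12 (CGF, adjusted p = 9.92e-12, 1.16e-08 and 9.9e-12). In SPF mice its levels were 1600.0, 1522 and 1467 CPM in Hip and 309, 306 and 309 CPM in PFC. The other beta genes went the opposite way. Cacnb3 differed by -2.16 ± 0.14 (SPF), -0.59 ± 0.14 (GF) and -2.23 ± 0.14 (CGF, adjusted p = 5.7e-10, 0.00294 and 4.19e-10). Cacnb1 differed by -1.21 ± 0.094 (SPF), -0.35 ± 0.092 (GF) and -1.24 ± 0.094 (CGF, adjusted p = 4.28e-09, 0.00631 and 2.98e-09). For Cacnb4 the values were -0.58 ± 0.14 (SPF), -1.11 ± 0.14 (GF) and -0.6 ± 0.14 (CGF, adjusted p = 0.0015, 1.18e-05 and 0.00112). The gamma genes went both ways. Cacng8 was higher in Hip, at 1.35 ± 0.13 (SPF), 1.04 ± 0.12 (GF) and 1.05 ± 0.12 (CGF, adjusted p = 3.98e-08, 4.43e-06 and 8.14e-07). So was Cacng7, at 0.5 ± 0.1 (SPF), 0.42 ± 0.099 (GF) and 0.36 ± 0.1 (CGF, adjusted p = 0.000293, 0.00304 and 0.00417). The low-level Cacng6 was at 2.05 ± 0.26 (SPF), 1.52 ± 0.22 (GF) and 1.74 ± 0.26 (CGF, adjusted p = 2e-06, 3.38e-05 and 1.04e-05). Cacng2 was lower in Hip, at -0.93 ± 0.12 (SPF), -1.07 ± 0.12 (GF) and -0.74 ± 0.12 (CGF, adjusted p = 2.08e-06, 2.27e-06 and 2.88e-05). The same held for Cacng3, at -0.77 ± 0.1 (SPF), -1.03 ± 0.1 (GF) and -0.71 ± 0.1 (CGF, adjusted p = 3.46e-06, 6.78e-07 and 8.31e-06). Cacng4 gave the lowest Hip to PFC ratio, -2.88 ± 0.31 (SPF), -2.29 ± 0.31 (GF) and -3.16 ± 0.32 (CGF, adjusted p = 2.45e-07, 1.93e-05 and 9.44e-08).

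Of the calcium channel pores, Cacna1e was higher in excitatory neurons of Hip, at 0.85 ± 0.089 (SPF), 0.35 ± 0.089 (GF) and 0.72 ± 0.089 (CGF, adjusted p = 1.8e-07, 0.00514 and 1.31e-06). The T type pore Cacna1g was lower in Hip, at -1.7 ± 0.13 (SPF), -0.92 ± 0.12 (GF) and -1.9 ± 0.13 (CGF, adjusted p = 2.64e-09, 1.84e-05 and 6.74e-10). Cacna1i, of the same type, was at -1.34 ± 0.1 (SPF), -0.91 ± 0.1 (GF) and -1.24 ± 0.1 (CGF, adjusted p = 3.98e-09, 2.72e-06 and 9.62e-09). The P/Q and N type pores gave smaller steps. Cacna1a was at -0.2 ± 0.082 (SPF), -0.46 ± 0.082 (GF) and -0.3 ± 0.082 (CGF, adjusted p = 0.0358, 0.000271 and 0.00317). Cacna1b was at -0.29 ± 0.08 (SPF), -0.43 ± 0.08 (GF) and -0.33 ± 0.08 (CGF, adjusted p = 0.0033, 0.000395 and 0.00128). Among sodium channel genes, the beta gene Scn3b was higher in Hip, at 1.41 ± 0.11 (SPF), 1.2 ± 0.11 (GF) and 1.54 ± 0.11 (CGF, adjusted p = 5.44e-09, 2.27e-07 and 1.83e-09). Scn4b was lower, at -2.26 ± 0.23 (SPF), -1.38 ± 0.22 (GF) and -2.19 ± 0.23 (CGF, adjusted p = 1.06e-07, 0.000109 and 1.72e-07). Scn7a was lower in Hip at -2.19 ± 0.22 (SPF), -2.13 ± 0.23 (GF) and -2.08 ± 0.22 (CGF, adjusted p = 1.03e-07, 1.31e-06 and 2.06e-07). Scn1a was called lower in Hip in SPF (-0.41) and GF (-0.44) mice and stood at -0.16 (adjusted p = 0.141) in CGF mice. Scn2a was called lower in SPF (-0.26) and CGF (-0.28) mice and stood at -0.19 (adjusted p = 0.0669) in GF mice. Scn1a was called in all 3 groups with the length and GC correction and with library totals, and Scn2a with the correction, at a common depth and without CGF mouse 19. With a correction for gene length and GC content the difference of Cacna1a turned positive in SPF and CGF mice and that of Cacna1b in CGF mice, and Cacng3 was no longer called in SPF (adjusted p = 0.0634) and CGF mice (0.524). Library totals ended the calls of Cacnb1 in GF mice (adjusted p = 0.115) and Cacng7 in CGF mice (0.449), and no count filter that of Cacna1a in SPF mice (0.0907). Leaving out SPF mouse 31 ended the SPF call of Cacna1b (adjusted p = 0.0524). Other calls that ended when a mouse was left out were those of Cacna1a in SPF mice (without CGF 17, SPF 30, SPF 31 or SPF 32, adjusted p from 0.0506 to 0.191), Cacnb1 in GF mice (without GF 6, 0.054) and Cacng7 in CGF mice (without CGF 19, 0.0709).

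**Figure D3:**
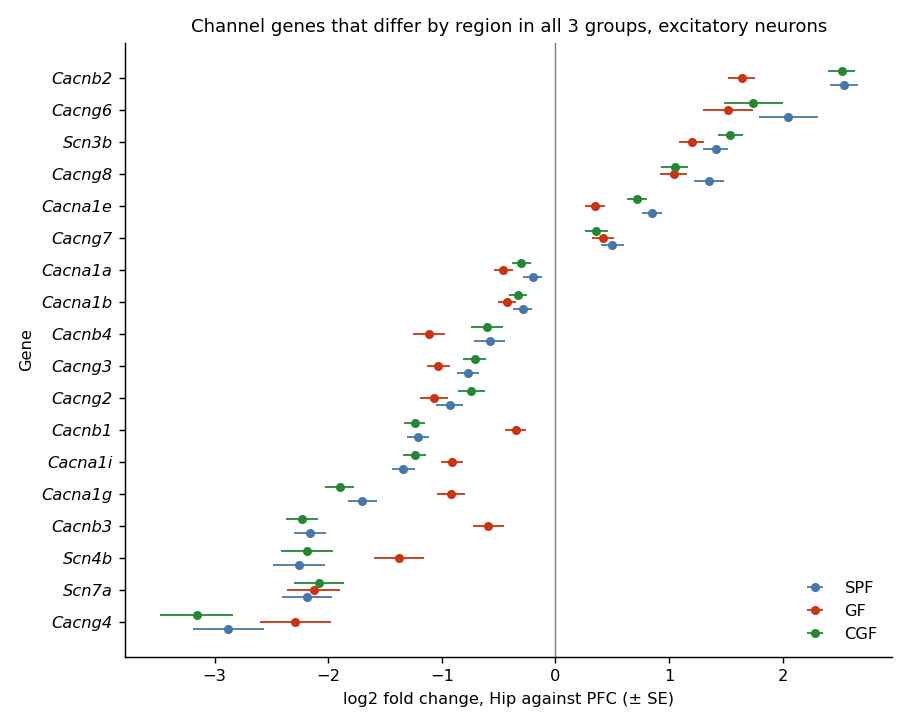
Log2 fold change of Hip against PFC (x axis, ± SE from edgeR) for the 18 channel genes (y axis) called in the same direction in all 3 groups of excitatory neurons, coloured by group, 3 mice each. Cacnb2 lies furthest to the right and Cacng4 furthest to the left, and the GF points of Cacnb3, Cacnb1 and Cacna1g sit nearer to 0 than the SPF and CGF points.

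Other cell types had fewer channel genes called in all 3 groups. In interneurons 2 of 31 were higher in Hip and 1 lower, beside 2.02 and 1.49% of all genes. Cacna2d1 was higher in Hip, at 1.22 ± 0.13 (SPF), 0.77 ± 0.13 (GF) and 1.43 ± 0.13 (CGF, adjusted p = 4.48e-08, 0.000307 and 3.45e-09). Cacna1b was higher too, at 0.38 ± 0.076 (SPF), 0.3 ± 0.075 (GF) and 0.34 ± 0.076 (CGF, adjusted p = 0.000182, 0.0157 and 0.000471). Cacna1e was lower in interneurons of Hip, at -0.68 ± 0.13 (SPF), -0.54 ± 0.13 (GF) and -0.8 ± 0.13 (CGF, adjusted p = 0.000108, 0.011 and 1.53e-05), the direction opposite to that in excitatory neurons. Without GF mouse 5 or 6 the calls of Cacna1b (adjusted p from 0.133 to 0.173) and Cacna1e (0.107 to 0.175) in GF mice ended, which left 1 gene called in all 3 groups. The count was 5 by DESeq2, 6 with the length and GC correction, 4 with library totals and 2 without a count filter, and in the last 2 settings Cacna1b was not called (adjusted p = 0.301 in CGF and 0.177 in GF mice). In astrocytes 1 of 27 was higher in Hip, Cacnb2, and 2 were lower, Cacna1d and Cacng3, beside 1.71 and 1.34% of all genes. Cacnb2 stood at 1.59 ± 0.19 (SPF), 0.81 ± 0.18 (GF) and 1.56 ± 0.18 (CGF, adjusted p = 2.64e-07, 0.00607 and 1.54e-07). In oligodendrocytes 1 of 28 was higher in Hip, Scn3b, and 2 were lower, again Cacna1d and Cacng3, beside 0.55 and 0.568% of all genes. Scn3b was at 1.47 ± 0.32 (SPF), 1.42 ± 0.27 (GF) and 1.96 ± 0.39 (CGF, adjusted p = 0.000849, 0.00152 and 0.000335). The 6 genes summed over the 4 glial types became 10 with the mouse as replicate block (5 in astrocytes, 3 in oligodendrocytes and 2 in OPC, Cacnb2 and Cacng4). They became 3 with the length and GC correction and 1, Cacnb2 in astrocytes, with libraries thinned to a common depth. Leaving out GF mouse 6 left 1, and leaving out GF mouse 5, GF mouse 7 or SPF mouse 31 left 3. By edgeR as run here no member was called in all 3 groups in OPC or microglia, though Cacnb2 was called in OPC without a count filter. In the fit with the filter 0.363 and 0.246% (OPC) and 0.422 and 0.195% (microglia) of all genes were higher and lower. In single groups edgeR called 11 of 26 in SPF mice, 1 in GF mice and 8 in CGF mice in OPC (27.4, 1.89 and 29.5% of all genes) and 10 of 23 in SPF mice, 1 in GF mice and 5 in CGF mice in microglia (22.5, 1.63 and 20.2%). The counts at an unadjusted p under 0.05 were 13, 8 and 11 in OPC and 13, 5 and 7 in microglia in the same order of groups, and DESeq2 called 9, 0 and 7 and 9, 1 and 3.

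In excitatory neurons of Hip, many sodium and calcium channel pores and their long auxiliary subunit genes were lower in GF than in SPF mice, and none was called higher. Of the 35 members tested, 16 were called lower and 0 higher, where 21.4% of all genes tested were lower and 25.3% higher. By DESeq2 0 were higher, as were 0 at an unadjusted p under 0.05 from edgeR. The members' median log2 fold change was -0.33 beside 0.037 over all genes. With library totals in place of TMM (edgeR's scaling factors), which moved the median of all genes by 0.16, 14 were lower and 4 higher: Cacna1a and Cacnb4 were no longer called, and Cacnb1, Cacng7, Scn2b and Scn3b were called higher. CPM values are relative to library totals, so a fold change can differ from their ratio by about this shift. Scn2a stood at 407, 415 and 399 CPM in the 3 SPF mice, 339.5, 351 and 355 CPM in the GF mice and 419, 409 and 385 CPM in the CGF mice. For this gene every GF mouse lay below every SPF and CGF mouse, and the log2 fold change of GF against SPF was -0.38 ± 0.058 (adjusted p = 0.000654). Scn8a stood at 492, 489 and 481 CPM in the 3 SPF mice, 415, 432 and 453 CPM in the GF mice and 473, 468 and 492 CPM in the CGF mice. Every GF mouse lay below every SPF and CGF mouse, with -0.33 ± 0.055 (adjusted p = 0.00106). Scn1a had the larger step of these, from 248, 240.1 and 226 CPM in the 3 SPF mice, 176, 161 and 166 CPM in the GF mice and 247, 257 and 214 CPM in the CGF mice, at -0.66 ± 0.088 (adjusted p = 0.00031). Scn3a fell by a like amount, -0.67 ± 0.081 (adjusted p = 0.000207). The scarce pore Scn7a also fell, at -0.76 ± 0.21 (adjusted p = 0.0124) from a mean of 2.8 CPM in SPF mice. In sums over nuclei of mixed subtypes, less RNA per nucleus and fewer nuclei of a subtype cannot be told apart. The values of the beta genes Scn2b and Scn3b were 0.33 ± 0.17 (adjusted p = 0.129) and 0.23 ± 0.13 (adjusted p = 0.182).

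All high-voltage calcium channel pores of brain were lower in GF excitatory neurons of Hip. Cacna1c stood at 906, 961 and 981 CPM in the 3 SPF mice, 676, 689 and 836 CPM in the GF mice and 1062, 975 and 1155 CPM in the CGF mice. Each GF mouse lay below every SPF and CGF mouse, at -0.53 ± 0.09 (adjusted p = 0.00118). Cacna1e fell at -0.54 ± 0.059 (adjusted p = 0.000135), Cacna1b at -0.42 ± 0.077 (adjusted p = 0.00177), Cacna1d at -0.4 ± 0.068 (adjusted p = 0.00122) and Cacna1a at -0.34 ± 0.07 (adjusted p = 0.00324), though the GF and SPF mice overlapped in CPM for Cacna1a. The T type pores Cacna1h, at -0.64 ± 0.14 (adjusted p = 0.00378), and Cacna1i, at -0.53 ± 0.11 (adjusted p = 0.00347), fell, while Cacna1g was at -0.12 ± 0.078 (adjusted p = 0.239). Long auxiliary subunit genes were lower too. Cacna2d1 stood at 1048, 977 and 869 CPM in the 3 SPF mice, 778, 685 and 694 CPM in the GF mice and 980.1, 893 and 897 CPM in the CGF mice, with -0.58 ± 0.095 (adjusted p = 0.000926). Cacna2d3 fell at -0.61 ± 0.12 (adjusted p = 0.00255), Cacnb2 at -0.6 ± 0.09 (adjusted p = 0.000625) and Cacnb4 at -0.52 ± 0.17 (adjusted p = 0.028). The short beta genes Cacnb1 and Cacnb3 were at 0.06 ± 0.065 (adjusted p = 0.465) and -0.05 ± 0.14 (adjusted p = 0.773), and no gamma gene was called in these cells. Of the 19 members tested with a span of at least 100 kb, 15 were called lower, against 1 of 16 shorter ones. The same split of all genes was not counted, so this does not set the channel genes apart from other long genes. Over the members the log2 fold change ran with gene span at a Spearman rho of -0.63, and over all 18536 genes with a span at -0.52, as a description of genes measured in the same libraries. With the length and GC correction 14 of the 16 lower calls were kept, those of Cacna1d and Cacnb4 were not, and Cacnb1 and Cacnb3 were called lower. The correction moved the median of the members to -0.24 and that of all genes to -0.17, so the members' median lay nearer to that of all genes with it than without it. The own-marker assignment of nuclei ended the calls of Cacna1h and Scn7a (adjusted p from 0.0572 to 0.908).

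The subtypes of Hip were fitted separately, and in each of them Scn1a and Scn2a were lower in GF mice. Of the members tested, 20 of 33 were lower and 2 higher in dentate granule neurons (all genes 22.8 and 26.1%). In the other subtypes 15 of 33 were lower and 3 higher in CA1 pyramidal neurons (all genes 22.4 and 25.1%), and 16 of 33 were lower and 1 higher in CA3 pyramidal neurons (all genes 22.8 and 24.6%). Scn1a fell at -0.69 ± 0.07, -0.77 ± 0.11 and -0.7 ± 0.073 in these subtypes in turn (adjusted p = 3.22e-05, 0.000218 and 2.63e-05), Scn2a at -0.4 ± 0.06, -0.4 ± 0.066 and -0.39 ± 0.072 (0.000294, 0.000619 and 0.000832). Cacna1g, which was not called in excitatory neurons as a whole, fell in dentate granule neurons at -0.76 ± 0.15 (adjusted p = 0.00142), beside -0.1 ± 0.11 (adjusted p = 0.507) in CA1 and -0.06 ± 0.12 (adjusted p = 0.704) in CA3 pyramidal neurons. Scn9a fell in dentate granule neurons too, at -0.51 ± 0.15 (adjusted p = 0.0148). Scn3b rose in dentate granule and CA1 pyramidal neurons, at 0.34 ± 0.099 (adjusted p = 0.0132) and 0.38 ± 0.1 (adjusted p = 0.0103), and Scn2b rose in CA1 and CA3 pyramidal neurons, at 0.45 ± 0.17 (adjusted p = 0.0483) and 0.56 ± 0.12 (adjusted p = 0.00201). With the length and GC correction the calls of Scn1a and Scn2a were kept in each subtype, and 13, 7 and 14 of the lower calls in all, in the same order of subtypes. The correction moved the median of all genes from 0.022, 0.032 and 0.037 to -0.11, -0.17 and -0.21, beside -0.26, -0.22 and -0.26 for the members. A shift of all genes thus enters the lower calls made with the correction. The calls of Scn3b and Scn2b given here were all lost with it, as was that of Scn9a, and of the higher calls 0, 1 and 0 were kept (Cacna2d4 in CA1 pyramidal neurons). With it Cacnb3 was called lower in each of the 3 subtypes.

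Interneurons of Hip had the same count of calls, 16 lower and 0 higher of 31 tested, where 21% of all genes were lower and 23% higher. DESeq2 called 0 higher, and 1 had a higher level at an unadjusted p under 0.05 from edgeR, Cacng7 at 0.19 ± 0.079 (adjusted p = 0.064). With library totals, which moved the median of all genes by 0.13, the counts were 14 and 4. Cacna1h and Scn7a were then not called, and Cacna2d2, Cacng7, Cacng8 and Scn9a were called higher. Cacna2d3, which is highest in Sst interneurons, stood at 1309, 1246 and 1269 CPM in the 3 SPF mice, 895, 799.7 and 822 CPM in the GF mice and 1056, 1233 and 1245 CPM in the CGF mice. Every GF mouse lay below every SPF and CGF mouse, with -0.73 ± 0.082 (adjusted p = 2.39e-05). Among the sodium channel pores Scn2a fell at -0.44 ± 0.071 (adjusted p = 0.000265), Scn8a at -0.32 ± 0.071 (adjusted p = 0.00227) and Scn7a at -0.95 ± 0.32 (adjusted p = 0.0269). Scn1a, the leading pore of these cells, fell at -0.39 ± 0.087 (adjusted p = 0.00257), and Scn3a at -0.64 ± 0.095 (adjusted p = 0.000142). The calcium channel pores Cacna1b, Cacna1c, Cacna1e and Cacna1h were at -0.46 ± 0.078 (adjusted p = 0.000403), -0.57 ± 0.074 (adjusted p = 5.97e-05), -0.58 ± 0.16 (adjusted p = 0.0101) and -0.47 ± 0.17 (adjusted p = 0.0411). The TARP genes Cacng3 and Cacng4 fell at -0.48 ± 0.1 (adjusted p = 0.00211) and -0.46 ± 0.11 (adjusted p = 0.00378). With the length and GC correction 8 of the 16 lower calls were kept (Cacna1b, Cacnb4, Scn3a, Scn2a, Cacna1c, Cacng3, Cacna2d3, Cacng4), and those of Cacna1a, Cacna1d, Cacna1e, Cacna1h, Cacnb2, Scn1a, Scn7a and Scn8a were not. Cacnb3 was then called lower and Cacna2d2 and Scn9a higher, for 9 lower and 2 higher in all, with medians of -0.22 over the members and -0.14 over all genes. Cacna1e lost its call without SPF 30 (adjusted p = 0.0546). Cacna1h lost its call without GF 5, GF 6, GF 7, SPF 30, SPF 31 or SPF 32 (adjusted p from 0.0651 to 0.113). Scn7a lost its call without GF 6, GF 7, SPF 30 or SPF 31 (adjusted p from 0.0603 to 0.105). The own-marker assignment of nuclei ended Cacna1e, Cacna1h, Cacng4 and Scn7a in Hip (adjusted p from 0.0615 to 0.65).

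In excitatory neurons of PFC the sodium channel pores Scn1a, Scn2a and Scn8a were lower as in Hip, together with T type pores and the short calcium channel beta genes Cacnb1 and Cacnb3. Of 34 members tested in excitatory neurons, 14 were lower and 7 higher in GF mice, where 31.1% of all genes were lower and 32.2% higher, and the members' median was -0.073 beside 0.0071. Library totals in place of TMM moved the median of all genes by -0.15 and gave 17 lower and 4 higher, with Cacna1a, Cacna1d and Cacnb4 added to the lower set and Cacng3, Cacng8 and Scn9a no longer called higher. The GF libraries of PFC were deeper than the others of that region, and with all libraries thinned to a common depth all calls of the members chosen for full statistics in these cells were kept. Among the called members of these cells Cacnb3 had the largest fall, from 143, 151 and 123 CPM in the 3 SPF mice, 32.5, 43.7 and 40.5 CPM in the GF mice and 96.4, 98.5 and 121 CPM in the CGF mice. Every GF mouse lay below every SPF and CGF mouse, and the log2 fold change against SPF was -1.68 ± 0.12 (adjusted p = 3.16e-07). In Hip the same gene was at 25.5, 26.2 and 27.9 CPM in SPF and 22.9, 36.3 and 26.7 CPM in GF mice, so GF mice had the smaller gap between the regions. The T type pores fell together. Cacna1h was at -1.21 ± 0.11 (adjusted p = 2.24e-06), Cacna1i at -1.02 ± 0.086 (adjusted p = 9.05e-07) and Cacna1g at -0.95 ± 0.14 (adjusted p = 8.31e-05). Cacna1i stood at 142, 129.8 and 129 CPM in SPF, 55.9, 56.5 and 65.5 in GF and 118, 117 and 130.3 in CGF mice. Cacnb1 fell at -0.84 ± 0.11 (adjusted p = 2.53e-05), Cacng4 at -1.12 ± 0.18 (adjusted p = 0.000201), and the N type pore Cacna1b at -0.33 ± 0.083 (adjusted p = 0.00401). The muscle gene Cacna1s was called lower at -1.17 ± 0.36 (adjusted p = 0.0141), from 0.652 CPM in SPF to 0.26 CPM in GF mice, a level of few UMIs.

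Scn2a stood at 600.3, 535 and 579 CPM in the 3 SPF mice, 348, 381 and 356 CPM in the GF mice and 579, 625 and 569 CPM in the CGF mice in excitatory neurons of PFC. Each GF mouse lay below every SPF and CGF mouse, with -0.51 ± 0.1 (adjusted p = 0.000865). Scn1a stood at 413, 370.1 and 326 CPM in the 3 SPF mice, 232, 206 and 184 CPM in the GF mice and 326, 309 and 334 CPM in the CGF mice, with -0.68 ± 0.098 (adjusted p = 7.76e-05). Scn8a fell at -0.25 ± 0.093 (adjusted p = 0.031) and Scn7a at -0.89 ± 0.21 (adjusted p = 0.00246). These pores fell in both regions, as did Cacna1b, Cacna1h and Cacna1i, which makes 7 of the 33 members tested in both regions, beside 8.41% of all genes so tested. Of these calls 4 were kept in both regions with the length and GC correction (Cacna1h, Scn1a, Scn2a and Scn7a). Of the sodium channel beta genes, Scn4b fell at -1.02 ± 0.23 (adjusted p = 0.00225) and Scn2b at -0.5 ± 0.13 (adjusted p = 0.00547), and Scn3b rose at 0.38 ± 0.085 (adjusted p = 0.00189). Cacna2d1 was the member that turned between regions, higher in GF excitatory neurons of PFC at 0.49 ± 0.11 (adjusted p = 0.00206) and lower in those of Hip. Its levels in PFC were 722, 842 and 717 CPM in the 3 SPF mice, 1026, 982 and 874 CPM in the GF mice and 860.5, 765 and 735 CPM in the CGF mice. Cacna1f, a retinal L type pore at low level, rose at 1.75 ± 0.29 (adjusted p = 0.000242) and Cacna2d4 at 1.09 ± 0.26 (adjusted p = 0.00299). Cacng3, Cacng8 and Scn9a rose at 0.24 ± 0.087 (adjusted p = 0.0299), 0.36 ± 0.13 (adjusted p = 0.028) and 0.76 ± 0.28 (adjusted p = 0.0325), each with GF and SPF mice that overlapped. Cacna1c, which fell in Hip, was at -0.01 ± 0.11 (adjusted p = 0.948), Cacnb2 at 0.24 ± 0.12 (adjusted p = 0.104) and Cacna2d3 at 0.04 ± 0.12 (adjusted p = 0.781). The Spearman rho with gene span was 0.13 over the members and 0.0 over all genes in these cells. The length and GC correction kept 9 of 14 lower and 6 of 7 higher calls, lost Cacna1b, Cacna1g, Cacna1i, Cacna1s, Scn8a and Scn3b, and put Cacna1b at 0.07. Cacna1a, Cacna2d2, Cacng6 and Cacng7 were called higher with it, so the counts became 9 lower and 10 higher, with medians of -0.019 over the members and 0.027 over all genes. Cacna1s lost its call without GF 5 or SPF 31 (adjusted p from 0.0509 to 0.0652). Scn8a lost its call without GF 5, SPF 31 or SPF 32 (adjusted p from 0.0788 to 0.134). Own-marker assignment ended Cacna2d1 (adjusted p = 0.0555).

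**Figure D4:**
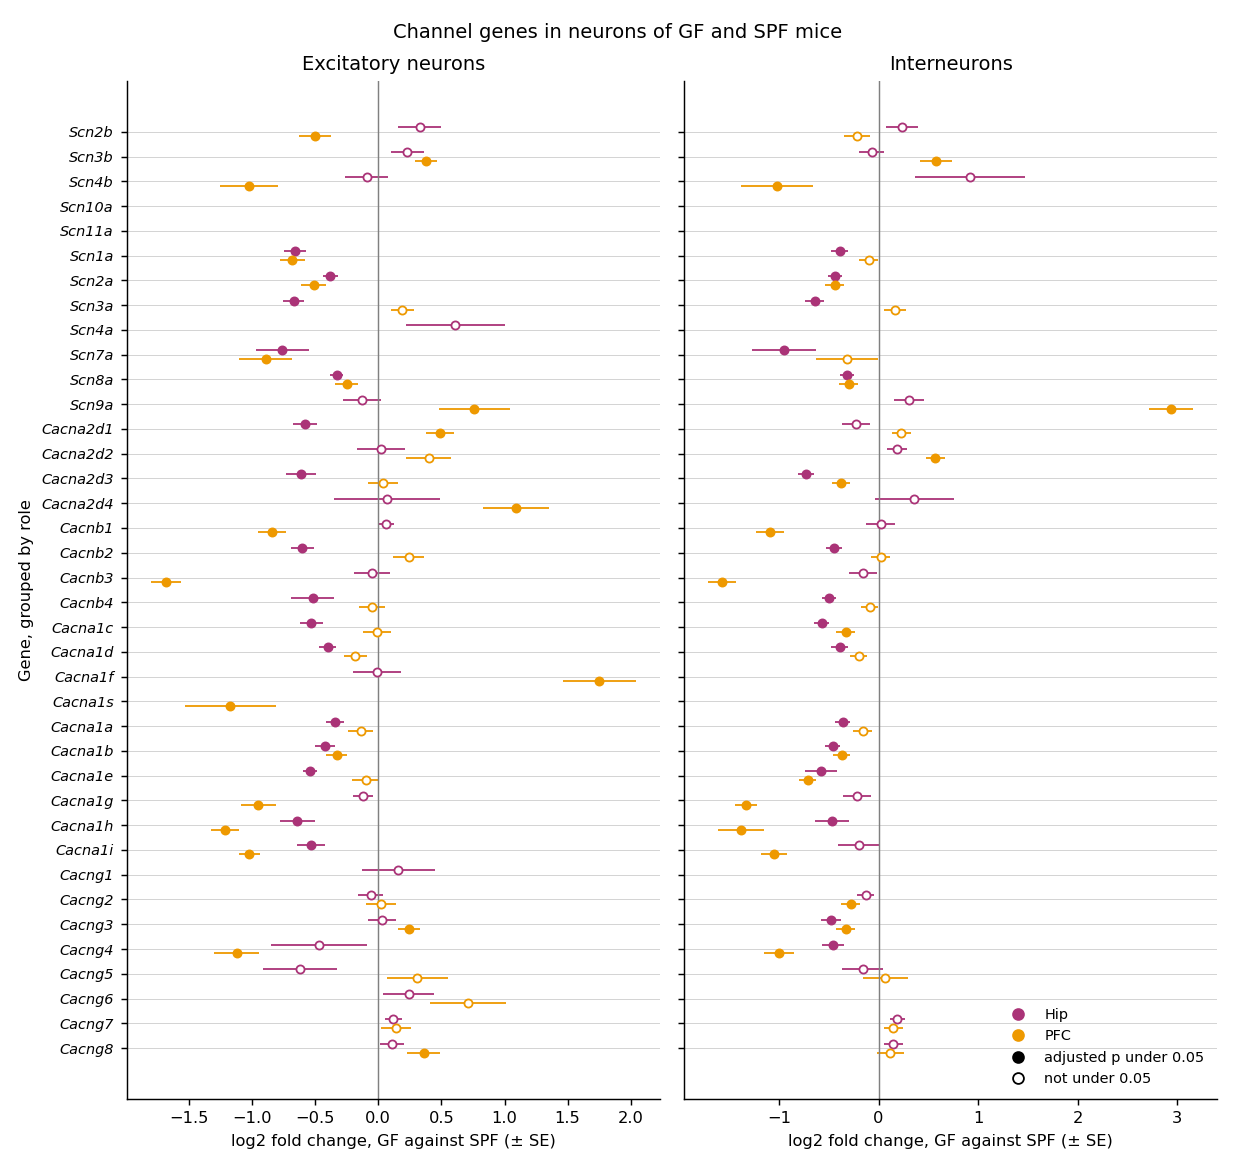
Log2 fold change of GF against SPF (x axis, ± SE from edgeR, 3 mice against 3) for the channel genes (y axis, grouped by role) in excitatory neurons and interneurons, with Hip and PFC in 2 colours and filled points for an adjusted p under 0.05. The sodium channel pores Scn1a, Scn2a and Scn8a lie left of 0 in both regions of excitatory neurons, Cacnb3 is far left in PFC alone, and Scn9a in interneurons of PFC is at 2.94.

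The subtypes of PFC were also fitted separately, and in each of them Cacnb3, Cacna1h and Scn1a were lower and Cacna2d1 and Scn3b higher in GF mice. Of the members tested, 12 of 32 were lower and 5 higher in upper layer neurons (all genes 29.3 and 30.1%). Likewise 12 of 30 were lower and 6 higher in mid layer neurons (all genes 27.7 and 28.6%), and 11 of 28 were lower and 4 higher in layer 6 corticothalamic neurons (all genes 25.9 and 27.3%). Cacnb3 fell at -1.65 ± 0.14, -1.7 ± 0.12 and -1.64 ± 0.14 in upper layer, mid layer and layer 6 corticothalamic neurons (adjusted p = 3.72e-07, 1.95e-08 and 5.62e-08). Cacna1h fell at -1.26 ± 0.12, -1.78 ± 0.19 and -0.94 ± 0.22 (1.6e-06, 1.2e-06 and 0.00207). Scn1a fell at -0.78 ± 0.13, -0.5 ± 0.1 and -0.75 ± 0.11 (0.000156, 0.000578 and 3.66e-05), and Cacna2d1 rose at 0.41 ± 0.13, 0.67 ± 0.11 and 0.46 ± 0.12 (0.0116, 0.00011 and 0.00312). Scn8a was called in upper layer neurons at -0.34 ± 0.11 (adjusted p = 0.0143) and stood at -0.17 ± 0.096 (adjusted p = 0.145) in mid layer and -0.16 ± 0.11 (adjusted p = 0.239) in layer 6 corticothalamic neurons. Scn3b rose at 0.51 ± 0.1, 0.41 ± 0.13 and 0.35 ± 0.14 (0.000772, 0.0128 and 0.0418). Correction for length and GC kept 7, 7 and 7 of the lower and 5, 6 and 3 of the higher calls, including those of Cacnb3, Scn1a and Cacna2d1 in each subtype. It ended the calls of Cacna1h and Scn3b in layer 6 corticothalamic neurons and that of Scn8a in upper layer neurons. Further members were called higher with it, among them Cacna1a and Cacng7 in each subtype, and the counts became 8 lower and 10 higher in upper layer, 7 and 9 in mid layer and 7 and 5 in layer 6 corticothalamic neurons.

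In interneurons of PFC the largest called rise was that of Scn9a. Scn9a stood at 22.6, 10.7 and 17.7 CPM in the 3 SPF mice, 146, 135 and 89.1 CPM in the GF mice and 22.7, 16.3 and 25.4 CPM in the CGF mice. Every GF mouse lay above every SPF and CGF mouse, with a log2 fold change of 2.94 ± 0.22 (adjusted p = 2.47e-09). In interneurons of Hip the same gene was at 103, 119 and 84.2 CPM in the 3 SPF mice, 156, 146 and 115 CPM in the GF mice and 124, 146 and 104 CPM in the CGF mice. There GF and SPF mice overlapped, at 0.31 ± 0.15 (adjusted p = 0.0987), and the GF values of PFC lay within the range of Hip. The GF libraries of PFC were also nearer to those of Hip in depth, and the part of this in the values of Scn9a was not tested. The subtypes of interneurons differed in this, and 2 of them are given, chosen after their values were seen. Within Pvalb interneurons of PFC its levels were 8.61, 1.2 and 7.31 CPM in the 3 SPF mice, 259.8, 252 and 173 CPM in the GF mice and 8.31, 4.58 and 13.9 CPM in the CGF mice. Within Sst interneurons of PFC they were 45.8, 32.5 and 26.3 CPM in the 3 SPF mice, 69.3, 47.7 and 25.6 CPM in the GF mice and 49.5, 24.4 and 39.1 CPM in the CGF mice, and the groups overlapped. So in SPF and CGF mice Scn9a was lower in Pvalb than in Sst interneurons, and in GF mice it was higher. In excitatory neurons of PFC the step was smaller, 0.76 ± 0.28. Of 30 members tested in interneurons of PFC, 15 were lower and 3 higher in GF mice, where 28% of all genes were lower and 29.5% higher (with library totals 17 and 3, Cacna1a and Cacna1d being added). The other members called higher were Cacna2d2, an alpha2delta gene found in Pvalb interneurons, at 0.57 ± 0.094 (adjusted p = 5.02e-05), and Scn3b at 0.58 ± 0.16 (adjusted p = 0.00553). Cacnb3 fell at -1.57 ± 0.14 (adjusted p = 3.66e-08), Cacnb1 at -1.09 ± 0.14 (adjusted p = 2.39e-06), and the T type pores Cacna1h, Cacna1g and Cacna1i at -1.38 ± 0.23 (adjusted p = 6.35e-05), -1.33 ± 0.11 (adjusted p = 1.13e-08) and -1.05 ± 0.13 (adjusted p = 2.3e-06). Of the high-voltage pores, Cacna1e fell at -0.71 ± 0.085 (adjusted p = 1.12e-06), Cacna1b at -0.37 ± 0.082 (adjusted p = 0.000822) and Cacna1c at -0.33 ± 0.092 (adjusted p = 0.0053). Among the sodium channel pores Scn2a fell at -0.44 ± 0.093 (adjusted p = 0.000567) and Scn8a at -0.3 ± 0.098 (adjusted p = 0.0132), while Scn1a was at -0.1 ± 0.099 (adjusted p = 0.396). Cacna2d3 stood at 955, 1016 and 965 CPM in the 3 SPF mice, 711, 729 and 695 CPM in the GF mice and 968, 933 and 904 CPM in the CGF mice. Each GF mouse lay below every SPF and CGF mouse, at -0.38 ± 0.09 (adjusted p = 0.00136). Cacng3 and Cacng4 fell at -0.33 ± 0.094 (adjusted p = 0.00637) and -1.0 ± 0.15 (adjusted p = 1.62e-05). Across both regions 9 of 30 members tested in interneurons were lower in both: Cacna1b, Cacna1c, Cacna1e, Cacna1h, Cacna2d3, Cacng3, Cacng4, Scn2a and Scn8a, beside 7.71% of all genes. With the length and GC correction 4 of them were kept in both regions (Cacna1c, Cacna2d3, Cacng4 and Scn2a). In PFC the correction kept 9 of 15 lower and 2 of 3 higher calls, lost Cacna1b, Cacna1i, Cacng2, Cacng3, Scn4b, Scn8a and Scn3b, and turned the values of Cacna1b and Cacng3 positive. With the members called only with it, Cacnb2, Cacnb4 and Scn2b lower and Cacna1a, Cacng7 and Cacng8 higher, the counts were 12 and 5. Scn8a lost its call without GF 5 or SPF 31 (adjusted p from 0.0528 to 0.0685), and the own-marker assignment ended Cacna1c, Cacng3 and Scn8a (adjusted p from 0.132 to 0.77).

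**Figure D5:**
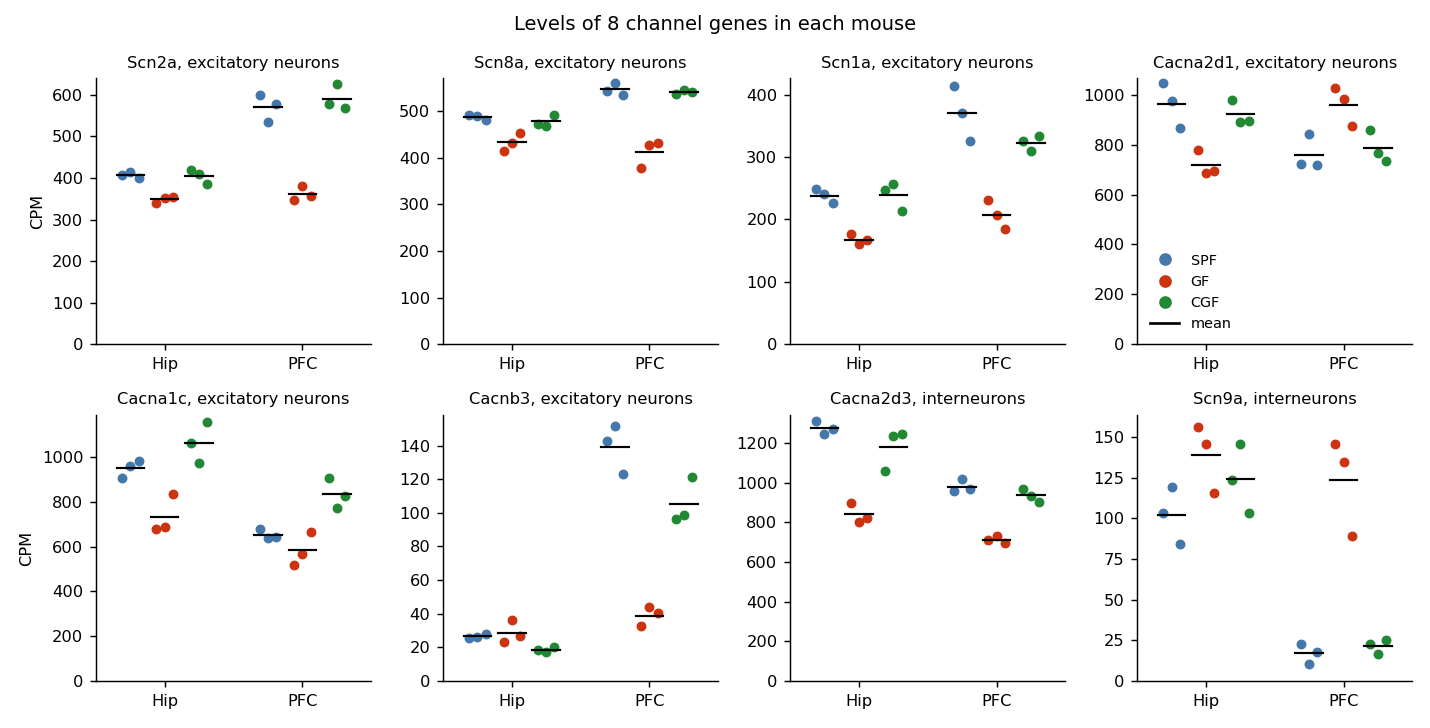
Level in CPM (y axis, from 0) of Scn2a, Scn8a, Scn1a, Cacna2d1, Cacna1c and Cacnb3 in excitatory neurons and of Cacna2d3 and Scn9a in interneurons, by region (x axis), with a point for each mouse coloured by group and a line at the mean of 3. GF mice lie under SPF and CGF mice for Scn2a, Scn8a and Scn1a in both regions, under them for Cacnb3 in PFC, above them for Scn9a in PFC, and for Cacna2d1 under them in Hip and above them in PFC.

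Glial nuclei gave lower channel counts in GF mice as well, and these were measured beside a list of neuronal genes that glia should lack. As given with the cell types, 88.2 to 98.8% of the glia of GF mice lay in clusters that held at most 11.7% of the SPF or CGF nuclei of the type, microglia of PFC excepted, and the part of this in the glial values was not tested. The list held 8 genes (Slc17a7, Nrgn, Snap25, Syt1, Rbfox3, Snhg11, Grin1 and Stmn2), whose levels in glia had medians of 38.3% (astrocytes, Hip), 38.8% (astrocytes, PFC), 45.8% (oligodendrocytes, Hip), 48.7% (oligodendrocytes, PFC), 36.5% (OPC, Hip), 37.2% (OPC, PFC), 57.1% (microglia, Hip) and 58.2% (microglia, PFC) of their level in excitatory neurons. None was at 0, and Nrgn was the highest at 105 to 293%. In GF against SPF mice 4 to 6 of the 8 were called lower and 2 to 3 higher in every type and region. The summed level of the list in Hip was, for example, 2499.7 to 2784.8 CPM in GF and 2280.4 to 3475.4 CPM in SPF astrocytes, and 3317.0 to 4083.0 and 3862.0 to 5041.1 CPM in microglia. The list's median log2 fold change in Hip was -0.47 (astrocytes), -0.55 (oligodendrocytes), -0.62 (OPC) and -0.69 (microglia). The members' medians there were -0.73, -1, -0.52 and -0.96. In PFC the list's medians were -0.58, -0.43, -0.65 and -0.6 in the same order, beside -0.9, -0.68, -0.2 and -0.53 for the members. Among members with at least 50 UMIs over the 9 libraries of a type and region, those that stood above all 8 list genes relative to excitatory neurons were Cacng4 and Cacna2d2 in astrocytes and OPC, Cacna2d4 in oligodendrocytes, Cacng7 and Cacng8 in astrocytes of PFC, and Scn3a and Cacng7 in OPC of PFC. Of these, 1 of 4 tested was called lower in GF mice in astrocytes of PFC and 1 of 3 in OPC of PFC. None of the others tested was called in either direction. Members with fewer UMIs also stood above the list, on 1 to 36 UMIs each: Cacna2d4 and Cacng5 (OPC of PFC), Cacna2d4 (astrocytes of PFC), Cacna2d2 (oligodendrocytes and microglia of PFC), Cacng1 (OPC), Cacna1s (oligodendrocytes of Hip and microglia), Scn4a (all 4 types of PFC) and Scn10a (astrocytes and oligodendrocytes of PFC). In every other case the member did not exceed the highest gene of the neuronal list, and how much of the signal came from RNA of neurons was not tested.

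In astrocytes 14 of 27 members tested were lower and 0 higher in Hip (all genes 15.6 and 18.2%), and 14 of 25 lower and 1 higher in PFC (all genes 23.2 and 23.7%). For the 0 that edgeR called higher in Hip, the count was 0 by DESeq2 and 0 at an unadjusted p under 0.05. The high-voltage pores made up much of the lower set. Cacna1a fell in both regions, with log2 fold changes of -0.73 ± 0.14 (adjusted p = 0.000826) in Hip and -1.33 ± 0.18 (adjusted p = 1.77e-06) in PFC. Cacna1b fell at -1.27 ± 0.23 (adjusted p = 0.000732) in Hip and -1.32 ± 0.25 (adjusted p = 0.000117) in PFC. Cacna1e fell at -1.45 ± 0.2 (adjusted p = 8.47e-05) in Hip and -1.08 ± 0.19 (adjusted p = 6.86e-05) in PFC. The L type pores followed them. Cacna1c fell at -1.08 ± 0.2 (adjusted p = 0.000874) in Hip and -1.71 ± 0.24 (adjusted p = 2.67e-06) in PFC. Cacna1d fell at -1.32 ± 0.15 (adjusted p = 2.4e-05) in Hip and -1.16 ± 0.22 (adjusted p = 0.000142) in PFC. Cacna1g fell in PFC at -1.67 ± 0.38 (adjusted p = 0.000788), beside -0.56 ± 0.44 (adjusted p = 0.34) in Hip. Cacna1i fell in PFC at -1.79 ± 0.38 (adjusted p = 0.000449), beside -0.59 ± 0.38 (adjusted p = 0.244) in Hip.

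Cacna2d1 in Hip (-1.28) and Cacna2d3, Cacnb2 and Cacnb4 were lower too, as were Cacnb1 (-1.46) and Cacnb3 (-1.28) in PFC. Cacna2d3 fell at -1.29 ± 0.21 (adjusted p = 0.000353) in Hip and -1.16 ± 0.18 (adjusted p = 1.27e-05) in PFC. Cacnb2 fell at -1.29 ± 0.16 (adjusted p = 4.36e-05) in Hip and -0.53 ± 0.2 (adjusted p = 0.0372) in PFC. Cacnb4 fell at -1.04 ± 0.23 (adjusted p = 0.00307) in Hip and -0.92 ± 0.17 (adjusted p = 9.24e-05) in PFC. Sodium channel genes moved in both directions in astrocytes, with Scn1a (-1.17) and Scn2a (-0.86) lower in Hip. Scn8a fell in both regions, with log2 fold changes of -0.92 ± 0.13 (adjusted p = 0.000108) in Hip and -0.9 ± 0.2 (adjusted p = 0.00054) in PFC. Scn3a fell in Hip, with a log2 fold change of -1.43 ± 0.2 (adjusted p = 9.68e-05), beside 0.42 ± 0.41 (adjusted p = 0.423) in PFC. The beta3 gene turned between the regions. Scn3b fell in Hip, at -0.67 ± 0.18 (adjusted p = 0.0105), and rose in PFC, at 1.73 ± 0.43 (adjusted p = 0.00189). The astrocyte gene Cacng4, well above the neuronal list, was at -0.15 ± 0.36 (adjusted p = 0.775) in Hip and -0.91 ± 0.26 (adjusted p = 0.0059) in PFC. In astrocytes 9 of 25 members tested in both regions were lower in both, beside 6.91% of all genes, and 5 of them with the length and GC correction (Cacna1b, Cacna1d, Cacna1e, Cacna2d3 and Scn8a). The correction kept 11 of 14 lower calls in Hip, without Cacna1a, Cacna1c and Cacnb4, and 12 of 14 in PFC, without Cacnb2 and Cacng4, and Cacna2d2 and Cacng8 were called higher in PFC with it. Own-marker assignment of astrocytes ended Cacna1b, Cacna1c, Cacna1e, Cacna2d3, Cacnb2 and Cacnb4 in PFC (adjusted p from 0.0968 to 0.892). Leaving out a mouse also ended a call. Cacnb2 in PFC lost its call without GF 6, GF 7, SPF 31 or SPF 32 (adjusted p from 0.0512 to 0.185).

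In oligodendrocytes 16 of 26 members tested were lower and 0 higher in Hip (all genes 15.7 and 20.1%), and 11 of 19 lower and 0 higher in PFC (all genes 21.2 and 20.8%). For the 0 that edgeR called higher in Hip, the count was 0 by DESeq2 and 1 at an unadjusted p under 0.05. For the 0 that edgeR called higher in PFC, the count was 0 by DESeq2 and 0 at an unadjusted p under 0.05. The P/Q, N and R type pores were lower in both regions. Cacna1a fell in both regions, with log2 fold changes of -1.16 ± 0.19 (adjusted p = 0.000135) in Hip and -1.55 ± 0.21 (adjusted p = 1.03e-06) in PFC. Cacna1b fell at -1.1 ± 0.21 (adjusted p = 0.000707) in Hip and -2.02 ± 0.29 (adjusted p = 1.95e-06) in PFC. Cacna1e fell at -1.64 ± 0.18 (adjusted p = 3.38e-06) in Hip and -0.99 ± 0.23 (adjusted p = 0.00111) in PFC. The L type pores and the T type pore Cacna1g gave these values. Cacna1c fell at -0.53 ± 0.15 (adjusted p = 0.0125) in Hip and -0.54 ± 0.2 (adjusted p = 0.0321) in PFC. Cacna1d fell at -1.56 ± 0.2 (adjusted p = 1.4e-05) in Hip and -1.31 ± 0.27 (adjusted p = 0.000267) in PFC. Cacna1g fell in Hip, with a log2 fold change of -1.9 ± 0.52 (adjusted p = 0.00833), and was under the count filter in PFC.

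Among the auxiliary genes, Cacna2d4, the alpha2delta gene of oligodendrocytes, was not called, at 0.53 ± 0.2 (adjusted p = 0.051) in Hip and 0.63 ± 0.31 (adjusted p = 0.108) in PFC. Cacna2d3 fell at -1.75 ± 0.21 (adjusted p = 9.35e-06) in Hip and -1.51 ± 0.24 (adjusted p = 1.01e-05) in PFC. Cacnb2 fell at -2.29 ± 0.21 (adjusted p = 8.45e-07) in Hip and -0.75 ± 0.3 (adjusted p = 0.0457) in PFC. Cacnb4 fell at -1.09 ± 0.15 (adjusted p = 2.63e-05) in Hip and -0.68 ± 0.17 (adjusted p = 0.00173) in PFC. Of the other called genes, Cacna1h (-1.49), Cacna2d1 (-1.22), Scn1a (-1.28), Scn2a (-0.94), Scn3a (-1.26) and Scn3b (-0.62) were lower in Hip and Cacnb3 (-1.41) in PFC. Cacnb1 fell in PFC, with a log2 fold change of -1.73 ± 0.43 (adjusted p = 0.00181), beside -0.01 ± 0.25 (adjusted p = 0.98) in Hip. Scn8a fell at -1.07 ± 0.15 (adjusted p = 3.8e-05) in Hip and -1.02 ± 0.2 (adjusted p = 0.00014) in PFC. In oligodendrocytes 9 of 19 members tested in both regions were lower in both, beside 7.92% of all genes, and 6 of them with the length and GC correction (Cacna1b, Cacna1d, Cacna1e, Cacna2d3, Cacnb4 and Scn8a). The correction turned the lower call of Cacna1c in Hip into a higher one, at 0.44 ± 0.14 (adjusted p = 0.0245). It kept 13 of 16 lower calls in Hip, losing Cacna1a and Cacna2d1 as well, and gave 14 lower and 3 higher there, Cacna1c, Cacna2d4 and Cacng7 being the higher ones. In PFC it kept 9 of 11, without Cacna1c and Cacnb2, and Cacna2d4 was called higher. With the own-marker assignment the value of Cacnb2 in PFC became positive. Own-marker assignment of oligodendrocytes ended Cacna1c, Cacna1d, Cacna1e, Cacna2d3 and Cacnb2 in PFC (adjusted p from 0.0628 to 0.797). Leaving out a mouse ended some calls. Cacna1c in Hip lost its call without GF 5 or SPF 32 (adjusted p from 0.0619 to 0.0762). Cacna1c in PFC lost its call without GF 5, GF 6, SPF 31 or SPF 32 (adjusted p from 0.0789 to 0.173). Cacna1g in Hip lost its call without GF 6 (adjusted p = 0.0685). Cacnb2 in PFC lost its call without GF 5, GF 7, SPF 31 or SPF 32 (adjusted p from 0.0843 to 0.412).

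In OPC 12 of 25 members tested were lower and 0 higher in Hip (all genes 10.3 and 13%), and 9 of 20 lower and 0 higher in PFC (all genes 19 and 18.3%). For the 0 that edgeR called higher in each region, the count was 0 by DESeq2 and 0 at an unadjusted p under 0.05. Cacng4, the TARP gene that marks these cells, was at -0.31 ± 0.14 (adjusted p = 0.106) in Hip and fell in PFC at -1.06 ± 0.15 (adjusted p = 9.75e-08). Its levels in OPC of PFC were 1414, 1484 and 1335 CPM in the 3 SPF mice, 665, 679 and 632 CPM in the GF mice and 1281, 1507 and 1647 CPM in the CGF mice. The members that fell in both regions were the pores Cacna1a, Cacna1c, Scn2a and Scn8a, 4 of 20 tested in both, beside 3.47% of all genes. None of them kept its call in both regions with the length and GC correction, which ended all 4 calls in Hip and that of Cacna1a in PFC and put Cacna1c in Hip at 0.03 ± 0.12 (adjusted p = 0.905) and Cacna1a in PFC at 0.17 ± 0.15 (adjusted p = 0.396). Cacna1a fell in both regions, with log2 fold changes of -0.43 ± 0.13 (adjusted p = 0.0173) in Hip and -0.42 ± 0.16 (adjusted p = 0.0307) in PFC. Cacna1c fell at -0.37 ± 0.12 (adjusted p = 0.0367) in Hip and -0.47 ± 0.16 (adjusted p = 0.0174) in PFC. Scn2a fell at -0.57 ± 0.14 (adjusted p = 0.00441) in Hip and -0.56 ± 0.18 (adjusted p = 0.00956) in PFC. Scn8a fell at -0.57 ± 0.14 (adjusted p = 0.00514) in Hip and -0.65 ± 0.18 (adjusted p = 0.00318) in PFC. The other named genes were called in a single region. Cacna1b fell in PFC, with a log2 fold change of -1.3 ± 0.3 (adjusted p = 0.00057), beside -0.62 ± 0.25 (adjusted p = 0.074) in Hip. Cacna1e fell in Hip, with a log2 fold change of -0.75 ± 0.13 (adjusted p = 0.000342), beside -0.22 ± 0.19 (adjusted p = 0.402) in PFC. Cacnb1 fell in PFC, with a log2 fold change of -1.89 ± 0.38 (adjusted p = 6.18e-05), beside 0.49 ± 0.35 (adjusted p = 0.33) in Hip. Cacnb2 fell in Hip, with a log2 fold change of -0.99 ± 0.19 (adjusted p = 0.000843), beside 0.11 ± 0.32 (adjusted p = 0.824) in PFC.

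The other genes called lower in OPC were Cacna2d1 (-0.66), Cacna2d3 (-0.41), Cacnb4 (-0.61), Scn1a (-0.52) and Scn3a (-0.59) in Hip and Cacna1g (-0.97) in PFC. Cacnb3 fell in PFC at -1.89 ± 0.31 (adjusted p = 2.39e-06), beside -0.05 ± 0.35 (adjusted p = 0.945) in Hip. Scn3b fell in Hip at -0.83 ± 0.28 (adjusted p = 0.0359), and was under the count filter in PFC. With library totals 9 members in place of 12 were lower in Hip, without Cacna1c, Cacna2d3 and Scn3b. At the finer clustering, which sets newly formed oligodendrocytes apart, of the calls given in full those of Cacna1a (adjusted p = 0.0501), Cacna1c (0.142) and Scn3b (0.189) in Hip and of Cacna1a (0.0661) in PFC were lost. In OPC the length and GC correction kept 2 of 12 lower calls in Hip, those of Cacnb2 and Scn3b, and 7 of 9 in PFC, without Cacna1a and Cacna1g. Scn2b in Hip was called lower with it, and Cacng7 and Cacng8 in PFC higher. Own-marker assignment of OPC ended Cacna1c and Scn3b in Hip (adjusted p from 0.0502 to 0.745) and Cacna1a, Cacna1c and Scn8a in PFC (adjusted p from 0.0924 to 0.253). Leaving out a mouse ended some calls. Cacna1a in Hip lost its call without GF 6, GF 7 or SPF 30 (adjusted p from 0.0557 to 0.0861). Cacna1a in PFC lost its call without GF 5, GF 6, GF 7, SPF 30 or SPF 31 (adjusted p from 0.0544 to 0.159). Cacna1c in Hip lost its call without GF 5, GF 6, SPF 30 or SPF 32 (adjusted p from 0.0632 to 0.161). Cacna1c in PFC lost its call without GF 5, GF 6 or SPF 31 (adjusted p from 0.0553 to 0.155). Scn2a in PFC lost its call without SPF 31 (adjusted p = 0.0746). Scn3b in Hip lost its call without GF 6, GF 7, SPF 31 or SPF 32 (adjusted p from 0.0616 to 0.132).

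In microglia 12 of 19 members tested were lower and 1 higher in Hip (all genes 12.3 and 13.6%), and 7 of 16 lower and 1 higher in PFC (all genes 19.7 and 19.4%). Pores of the N, L and R type, with Cacna2d3 and Scn8a, were lower in both regions. Cacna1b fell in both regions, with log2 fold changes of -1.35 ± 0.26 (adjusted p = 0.000586) in Hip and -1.87 ± 0.31 (adjusted p = 1.32e-05) in PFC. Cacna1c fell at -1.54 ± 0.26 (adjusted p = 0.000169) in Hip and -1.96 ± 0.31 (adjusted p = 5.62e-06) in PFC. Cacna1e fell at -1.38 ± 0.21 (adjusted p = 6.3e-05) in Hip and -1.15 ± 0.3 (adjusted p = 0.00227) in PFC. Cacna2d3 and Scn8a moved likewise. Cacna2d3 fell at -1.85 ± 0.26 (adjusted p = 2.01e-05) in Hip and -2.12 ± 0.24 (adjusted p = 9.03e-09) in PFC. Scn8a fell at -1.5 ± 0.18 (adjusted p = 4.52e-06) in Hip and -1.17 ± 0.24 (adjusted p = 0.000159) in PFC. Cacna1a was the member called higher in Hip, where microglia held 536 ± 133 CPM. Cacna1a rose in Hip, with a log2 fold change of 0.51 ± 0.18 (adjusted p = 0.0417), beside 0.16 ± 0.19 (adjusted p = 0.538) in PFC. Scn1a fell in Hip, with a log2 fold change of -1.67 ± 0.28 (adjusted p = 0.000123), beside -0.37 ± 0.34 (adjusted p = 0.409) in PFC. Scn3a fell in Hip, with a log2 fold change of -1.59 ± 0.27 (adjusted p = 0.000159), and was under the count filter in PFC.

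Also called lower were Cacna2d1 (-1.47), Cacnb2 (-0.56), Cacnb4 (-0.72), Scn2a (-1.03) and Scn3b (-0.96) in Hip and Cacna1d (-1.01) and Cacnb3 (-1.35) in PFC. The beta gene Scn2b, whose level was highest in microglia of Hip, was called higher in PFC. Scn2b rose in PFC, with a log2 fold change of 1.01 ± 0.38 (adjusted p = 0.0317), beside -0.25 ± 0.23 (adjusted p = 0.457) in Hip. In microglia 5 of 16 members tested in both regions were lower in both, beside 7.07% of all genes, and 2 of them, Cacna1b and Scn8a, with the length and GC correction. The correction kept 6 of 12 lower calls in Hip, without Cacna1c, Cacna1e, Cacna2d1, Cacna2d3, Cacnb2 and Cacnb4, and 6 of 7 in PFC, without Cacna1e. It kept the higher call of Cacna1a in Hip and ended that of Scn2b in PFC, where Cacnb4 was called lower and Cacna1a higher with it. Own-marker assignment of microglia ended Cacna1a, Cacna1b and Cacna2d3 in Hip (adjusted p from 0.0873 to 0.204) and Cacna1b, Cacna1c, Cacna1e, Cacna2d3 and Scn8a in PFC (adjusted p from 0.105 to 0.834). Leaving out a mouse ended some calls. Cacna1a in Hip lost its call without GF 6, GF 7, SPF 30 or SPF 31 (adjusted p from 0.0789 to 0.117). Cacna1e in PFC lost its call without SPF 32 (adjusted p = 0.0542). Scn2b in PFC lost its call without GF 7, SPF 30, SPF 31 or SPF 32 (adjusted p from 0.0639 to 0.101).

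Mice colonized from 4 weeks of age were compared with SPF mice in the neurons. No channel gene was called by edgeR in excitatory neurons or interneurons of either region, where 0.7, 0.376, 0.362 and 0.379% of all genes were called (excitatory neurons and interneurons of Hip, then of PFC). At an unadjusted p under 0.05 the counts were 7, 5, 7 and 4 members in the same order, and DESeq2 called 2 in excitatory neurons of Hip and 0 in the others. The log2 fold changes of CGF against SPF in excitatory neurons were 0.03 ± 0.058 (adjusted p = 0.843) in Hip and 0.03 ± 0.1 (adjusted p = 0.925) in PFC for Scn2a. For Scn1a they were 0.05 ± 0.087 (adjusted p = 0.838) and -0.21 ± 0.098 (adjusted p = 0.374), and for Scn8a 0.01 ± 0.055 (adjusted p = 0.951) and -0.04 ± 0.093 (adjusted p = 0.896). Scn9a in interneurons of PFC was at 0.33 ± 0.27 (adjusted p = 0.727). A value that misses the threshold does not show that CGF and SPF mice were equal. Cacnb3 in excitatory neurons of PFC, for instance, had no CGF mouse above the lowest SPF mouse, at -0.42 ± 0.12 (adjusted p = 0.184). The same comparison within subtypes was added after values had been seen. In dentate granule neurons 1 of 33 members was higher and 3 were lower, beside 2.01% of all genes called. Cacnb2 was higher at 0.28 ± 0.062 (adjusted p = 0.0418), and the genes lower in CGF mice were Cacna1g at -0.91 ± 0.15 (adjusted p = 0.012), Cacna1h at -0.67 ± 0.08 (adjusted p = 0.00368) and Cacnb3 at -0.63 ± 0.13 (adjusted p = 0.029). Cacna1g stood at 24.1, 23.6 and 19.9 CPM in the 3 SPF mice, 15.6, 13.8 and 13.8 CPM in the GF mice and 12.7, 8.77 and 13 CPM in the CGF mice in these neurons, where CGF and GF mice were both low against SPF mice. In CA1, CA3, upper layer, mid layer and layer 6 corticothalamic neurons edgeR called 0 members, beside 0.84, 0.574, 0.193, 0.264 and 0.27% of all genes, with 8, 5, 7, 6 and 4 members at an unadjusted p under 0.05 and 1, 0, 0, 0 and 0 called by DESeq2.

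GF mice were also compared with CGF mice, a comparison that shares its GF libraries with that against SPF mice, and the comparisons are not independent. Lower in GF than in CGF mice were 15 of 35 members in excitatory neurons of Hip (21.8% of all genes), 15 of 31 in interneurons of Hip (21.1%), 14 of 34 in excitatory neurons of PFC (30.6%) and 13 of 30 in interneurons of PFC (27.1%). Higher in GF mice were 6, 2, 7 and 4 members (24.9, 23.4, 32 and 28.8% of all genes). Side by side, Scn1a in excitatory neurons of Hip was at -0.71 ± 0.088 (adjusted p = 0.000187) against CGF and -0.66 ± 0.088 against SPF mice, and Cacna2d1 at -0.56 ± 0.095 (adjusted p = 0.00104) and -0.58 ± 0.095. Cacna1c in excitatory neurons of PFC was called against CGF mice, at -0.34 ± 0.11 (adjusted p = 0.0165), and was at -0.01 ± 0.11 against SPF mice, where CGF mice held 905, 772 and 824 CPM and SPF mice 677, 639 and 643 CPM. Scn8a in excitatory neurons of PFC was at -0.22 ± 0.093 (adjusted p = 0.0595) against CGF mice. In interneurons of PFC, Scn9a was at 2.61 ± 0.21 (adjusted p = 7.34e-09) and 2.94 ± 0.22.

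The difference between GF and SPF mice was compared between the regions with an interaction term, PFC minus Hip. In excitatory neurons 11 of 37 members had a more positive difference in PFC and 7 a more negative difference, where 29.5 and 22.9% of all genes were called. This split moved with the scaling: it was 4 positive and 11 negative with library totals, which took the median interaction of all genes from 0.11 to -0.25, and 15 and 2 with the length and GC correction, with a median of 0.28. Cacna2d1 differed by 1.13 ± 0.15 (adjusted p = 5.83e-06), Cacnb2 by 0.9 ± 0.16 (adjusted p = 0.000152) and Scn3a by 0.91 ± 0.13 (adjusted p = 1.14e-05) on the positive side, all genes that fell in Hip. Cacnb3, a gene that fell in PFC, differed by -1.57 ± 0.2 (adjusted p = 3.58e-06) on the negative side. Scn1a, Scn2a and Scn8a, which fell in both regions, gave interactions of 0.04 ± 0.13 (adjusted p = 0.836), -0.07 ± 0.11 (adjusted p = 0.633) and 0.13 ± 0.1 (adjusted p = 0.303). In interneurons the counts were 9 positive and 7 negative of 31 (24.8 and 20.5% of all genes), 2 and 9 with library totals (median of all genes 0.06 and -0.14) and 10 and 3 with the length and GC correction (0.12). Scn9a differed by 2.62 ± 0.29 (adjusted p = 1.64e-07) and Cacna2d4 by 1.89 ± 0.74 (adjusted p = 0.0396), and Scn4b by -1.94 ± 0.7 (adjusted p = 0.027) and Cacnb3 by -1.41 ± 0.21 (adjusted p = 6.41e-06). The call of Cacna2d4 ended with library totals (adjusted p = 0.0673) and without GF 5, GF 7, SPF 30 or SPF 31 (adjusted p from 0.056 to 0.227), and that of Scn4b ended without GF 5, GF 7 or SPF 31 (0.0713 to 0.26) and with the length and GC correction. Glia had fewer calls. There were 6 positive and 2 negative of 27 in astrocytes (14.7 and 11.6% of all genes) and 3 and 3 of 28 in oligodendrocytes (9.04 and 7.92%). The counts were 4 and 3 of 26 in OPC (9.37 and 7.74%) and 3 and 0 of 23 in microglia (4.65 and 5.38%). With library totals they were 5 and 2, 3 and 3, 2 and 3, and 6 and 0 in these 4 types, and with the correction 2 and 0, 0 and 2, 1 and 1, and 0 and 1. By median UMIs per nucleus the GF libraries lay above the SPF libraries in PFC and below them in Hip. Thinning leaves expected shares unchanged, so the part of depth in the interaction was not tested. The mitochondrial share of GF libraries also turned between the regions, above SPF and CGF libraries in Hip and below them in PFC, and its part was not tested.

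Genes whose proteins hold or tune these channels were read from the same fits. The 12 sodium channel partners were the intracellular FGFs Fgf11 to Fgf14, the ankyrins Ank2 and Ank3, Sptbn4, Nfasc, Nrcam, Cntn1, Tnr and the ubiquitin ligase gene Nedd4l. Of these 10 were lower and 0 higher in GF excitatory neurons of Hip and 10 and 0 in interneurons. In PFC 1 was lower and 6 higher in both cell types. Ank3, the organizer of the axon initial segment, was at -0.4 ± 0.063 (adjusted p = 0.000798) in excitatory neurons of Hip and 0.06 ± 0.099 (adjusted p = 0.622) in PFC. Nfasc, a cell adhesion gene of the initial segment, fell in both regions, at -0.35 ± 0.061 (adjusted p = 0.00135) and -0.53 ± 0.095 (adjusted p = 0.000389). Fgf14, which binds sodium channel tails, fell in Hip at -0.27 ± 0.086 (adjusted p = 0.029) and rose in PFC at 0.53 ± 0.15 (adjusted p = 0.00696). With the length and GC correction 7 partners were lower in excitatory neurons and 2 in interneurons of Hip, and in PFC 0 were lower and 6 higher in both types, the call of Nfasc being lost in each. Of the calcium channel partners, release-site and calmodulin pathway genes, 10 of 19 tested were lower and 3 higher in excitatory neurons of Hip, and 9 and 2 of 17 in interneurons of Hip. In PFC the counts were 6 and 5 of 19 in excitatory neurons and 9 and 3 of 16 in interneurons. With the correction they were 9 and 2 (excitatory neurons) and 5 and 2 (interneurons) in Hip and 6 and 6 and 8 and 3 in PFC. Rims1, which tethers calcium channels at release sites, fell in excitatory neurons of Hip at -0.54 ± 0.065 (adjusted p = 0.000201) and rose in those of PFC at 0.97 ± 0.13 (adjusted p = 3.58e-05). The sodium leak channel complex, which sets resting excitability, is Nalcn with Unc79, Unc80 and Fam155a, and all 4 genes were lower in excitatory neurons and in interneurons of Hip, also with the correction. In PFC Unc80 fell in both, at -0.34 ± 0.089 (adjusted p = 0.00525) in excitatory neurons and -0.41 ± 0.094 (adjusted p = 0.00106) in interneurons, and Nalcn rose in interneurons at 0.31 ± 0.11 (adjusted p = 0.019). The shares of all genes called in these fits without the correction are those given with the members, and those with the correction are not given. The partner lists were chosen with earlier results of these data known.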

How the data were processed

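Nuclei from frozen Hip and PFC of 9 mice (3 SPF, 3 GF and 3 CGF) were sequenced on a 10x Chromium platform. The authors aligned the reads to mm10 with Cell Ranger (version 3.1.0, per the file headers) and deposited UMI counts per gene and nucleus for 18 libraries, as raw counts that were not normalized. Whether intronic reads were counted is not given in the sources used here. Per-length levels use the gene span, and whether that suits these counts was not tested.

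Nuclei with at least 200 genes and at most 10% mitochondrial counts were kept, 2000 variable genes and 10 principal components gave a graph of 20 neighbours, and Leiden clusters (resolution 1) were named from marker lists. The naming thresholds were set after the clusters were seen. No cluster could be named layer 5 from its markers, so the planned layer 5 fit was not made, and unnamed clusters were left out. Likely doublets (6.41% of nuclei in Hip and 6% in PFC, scored against simulated sums) were kept and removed as an alternative. Counts were summed per mouse, region and type. edgeR's quasi-likelihood test (TMM, filterByExpr, all 9 mice of a region in a fit, both regions for region contrasts) gave p-values with Benjamini-Hochberg adjustment over all genes, threshold 0.05, and SE is the size of the log2 change over the root of F. The scripts were tested on simulated data. Tools were Python 3.11.15, numpy 2.4.6, pandas 2.3.3, scipy 1.17.1, scikit-learn 1.9.0, leidenalg 0.10.2, R 4.3.3, edgeR 4.0.16, limma 3.58.1 and DESeq2 1.42.0.

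Both regions came from the same mouse, so the mouse numbers pair the regions. Deviations of same-mouse libraries correlated at 0.2 to 0.48 in excitatory neurons against -0.35 to 0.022 between mice. They were weaker in other types, at 0.077 to 0.29 in interneurons, -0.021 to 0.24 in astrocytes, 0.018 to 0.2 in oligodendrocytes, 0.019 to 0.075 in OPC and -0.0072 to 0.11 in microglia. The pairing rests on the shared mouse, and the replicate block is an alternative. The others were DESeq2, its size factors, no count filter, thinning to a common depth, an offset for gene length and GC content, doublets removed, at least 500 genes per nucleus, nuclei assigned by their own marker UMIs, Leiden resolution 2, only the 6 mice compared, each mouse left out, and, chosen after seeing the data, library totals in place of TMM. Levels are CPM of a type's summed counts, and precision follows from 3 mice a group.

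The members and all gene lists were chosen with earlier results of these data known. Full statistics are given for the up to 3 largest rises and falls with non-overlapping groups in each type and region, members called alike in both regions, and interactions in neurons. Promoters come from RefSeq. Results of 2 of the 40 members are not reported here, and every count and share is over the other 38. Antisense genes overlap some members, and whether counting used strand is not given in the sources used here.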

Additional observations from a re-analysis of the deposited data

Results flagged for a closer look

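In excitatory neurons the GF against SPF difference of 18 of 37 members differed between the regions by the interaction test (PFC minus Hip, log2 ± SE), beside 52.4% of all genes. Scn3a 0.91 ± 0.13 (adjusted p = 1.14e-05) and Scn9a 0.94 ± 0.35 (adjusted p = 0.0333) were more positive in PFC among the sodium channel genes. Cacna1c 0.58 ± 0.14 (adjusted p = 0.00273), Cacna1d 0.27 ± 0.11 (adjusted p = 0.0407), Cacna1e 0.5 ± 0.13 (adjusted p = 0.00273) and Cacna1f 1.82 ± 0.34 (adjusted p = 0.000261) were more positive in PFC among the calcium channel pores. Cacna2d1 1.13 ± 0.15 (adjusted p = 5.83e-06), Cacna2d3 0.7 ± 0.17 (adjusted p = 0.00201), Cacnb2 0.9 ± 0.16 (adjusted p = 0.000152) and Cacnb4 0.52 ± 0.2 (adjusted p = 0.037) were more positive in PFC among the auxiliary genes of calcium channels, and so was the TARP gene Cacng5, at 0.98 ± 0.39 (adjusted p = 0.0437). Scn2b -0.78 ± 0.22 (adjusted p = 0.00623) and Scn4b -0.87 ± 0.31 (adjusted p = 0.0264) were more negative in PFC among the sodium channel genes. Cacna1g -0.78 ± 0.18 (adjusted p = 0.00125), Cacna1h -0.51 ± 0.18 (adjusted p = 0.0264) and Cacna1i -0.43 ± 0.14 (adjusted p = 0.018) were more negative in PFC among the calcium channel pores. Cacnb1 -0.85 ± 0.13 (adjusted p = 3.38e-05) and Cacnb3 -1.57 ± 0.2 (adjusted p = 3.58e-06) were more negative in PFC among the auxiliary genes of calcium channels. Those of Cacna1h and Cacna1i turned positive with the length and GC correction (0.29 and 0.35), and the calls of Cacna1d, Cacna1e, Cacna1g, Cacna2d3, Cacnb1, Cacnb4, Scn4b and Scn9a were lost with it. With library totals 7 of the 11 positive calls were lost, those of Cacna1c (adjusted p = 0.23), Cacna1d (0.417, turned to -0.1), Cacna1e (0.36), Cacna2d3 (0.0686), Cacnb4 (0.486), Cacng5 (0.214) and Scn9a (0.207), and 0 of the 7 negative ones. Calls that ended when a mouse was left out, with the adjusted p then given, were those of Cacna1d (without CGF 17, GF 5, GF 6, GF 7, SPF 30 or SPF 31, 0.0585 to 0.181), Cacna1h (without GF 5, GF 6 or SPF 30, 0.0503 to 0.151), Cacna1i (without SPF 32, 0.0645), Cacnb4 (without CGF 17, GF 5, GF 6, SPF 30 or SPF 31, 0.051 to 0.201), Cacng5 (without CGF 18, GF 5, GF 6, GF 7, SPF 30, SPF 31 or SPF 32, 0.0506 to 0.138), Scn2b (without SPF 31, 0.051), Scn4b (without GF 5, GF 7 or SPF 31, 0.0926 to 0.126) and Scn9a (without GF 5, GF 6 or SPF 31, 0.0717 to 0.211).

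In interneurons 16 of 31 members differed, beside 45.3% of all genes. Scn3a 0.81 ± 0.14 (adjusted p = 6.97e-05), Scn3b 0.65 ± 0.21 (adjusted p = 0.0147) and Scn9a 2.62 ± 0.29 (adjusted p = 1.64e-07) were more positive in PFC among the sodium channel genes. Cacna2d1 0.45 ± 0.18 (adjusted p = 0.0496), Cacna2d2 0.38 ± 0.14 (adjusted p = 0.0286), Cacna2d3 0.35 ± 0.11 (adjusted p = 0.0157), Cacna2d4 1.89 ± 0.74 (adjusted p = 0.0396), Cacnb2 0.47 ± 0.12 (adjusted p = 0.00311) and Cacnb4 0.41 ± 0.11 (adjusted p = 0.00287) were more positive in PFC among the auxiliary genes of calcium channels. Scn4b -1.94 ± 0.7 (adjusted p = 0.027) was more negative in PFC among the sodium channel genes. Cacna1g -1.1 ± 0.18 (adjusted p = 2.26e-05), Cacna1h -0.92 ± 0.3 (adjusted p = 0.0166) and Cacna1i -0.85 ± 0.25 (adjusted p = 0.00761) were more negative in PFC among the calcium channel pores. Cacnb1 -1.12 ± 0.2 (adjusted p = 0.000101) and Cacnb3 -1.41 ± 0.21 (adjusted p = 6.41e-06) were more negative in PFC among the auxiliary genes of calcium channels, as was the TARP gene Cacng4, at -0.54 ± 0.18 (adjusted p = 0.0205). Cacna2d1 (-0.03), Cacnb2 (-0.06) and Cacnb4 (-0.0) turned negative or to 0 with the length and GC correction, and the calls of Cacna1h, Cacna1i, Cacna2d3, Cacnb1, Cacng4 and Scn4b were lost. Library totals ended 7 of the 9 positive calls, those of Cacna2d1 (adjusted p = 0.246), Cacna2d2 (0.364), Cacna2d3 (0.262), Cacna2d4 (0.0673), Cacnb2 (0.0551), Cacnb4 (0.0642) and Scn3b (0.104), and 0 of the 7 negative ones. A mouse left out ended those of Cacna1h (without GF 7 or SPF 31, 0.0668 to 0.133), Cacna1i (without GF 7, 0.0746), Cacna2d1 (without CGF 17, CGF 18, CGF 19, GF 6, GF 7, SPF 30 or SPF 31, 0.0559 to 0.245), Cacna2d2 (without GF 5, SPF 31 or SPF 32, 0.0919 to 0.109), Cacna2d3 (without GF 6 or SPF 30, 0.0805 to 0.0906), Cacna2d4 (without GF 5, GF 7, SPF 30 or SPF 31, 0.056 to 0.227), Cacng4 (without GF 5, GF 6, SPF 31 or SPF 32, 0.0687 to 0.113), Scn3b (without GF 7 or SPF 32, 0.0574 to 0.108) and Scn4b (without GF 5, GF 7 or SPF 31, 0.0713 to 0.26).

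Astrocytes had 8 such members of 27 (26.3% of all genes). Scn1a 0.87 ± 0.32 (adjusted p = 0.0434), Scn2a 0.93 ± 0.21 (adjusted p = 0.00174), Scn3a 1.86 ± 0.44 (adjusted p = 0.00259) and Scn3b 2.42 ± 0.45 (adjusted p = 0.000256) were more positive in PFC among the sodium channel genes. Cacna2d1 0.95 ± 0.23 (adjusted p = 0.00367) and Cacnb2 0.78 ± 0.27 (adjusted p = 0.0332) were more positive in PFC among the auxiliary genes of calcium channels. Cacnb1 -1.04 ± 0.29 (adjusted p = 0.00952) and Cacnb3 -1.27 ± 0.33 (adjusted p = 0.00501) were more negative in PFC among the auxiliary genes of calcium channels. Library totals ended the call of Scn1a (adjusted p = 0.0543). The correction ended the calls of Cacna2d1, Cacnb1, Cacnb2, Cacnb3, Scn1a and Scn2a, and a mouse left out those of Cacnb1 (without GF 5, 0.0633), Cacnb2 (without CGF 18, GF 5, GF 7, SPF 30 or SPF 32, 0.05 to 0.291) and Scn1a (without CGF 18, GF 6, GF 7, SPF 30 or SPF 32, 0.0752 to 0.266).

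Oligodendrocytes had 6 of 28 (17% of all genes). Scn2a 0.95 ± 0.22 (adjusted p = 0.00284) was more positive in PFC among the sodium channel genes. Cacna2d1 1.2 ± 0.26 (adjusted p = 0.00126) and Cacnb2 1.54 ± 0.38 (adjusted p = 0.00491) were more positive in PFC among the auxiliary genes of calcium channels. Cacna1i -2.09 ± 0.63 (adjusted p = 0.02) was more negative in PFC among the calcium channel pores. Cacnb1 -1.72 ± 0.53 (adjusted p = 0.0223) and Cacnb3 -1.56 ± 0.44 (adjusted p = 0.0125) were more negative in PFC among the auxiliary genes of calcium channels. Lost with the correction were Cacna2d1, Cacnb1, Cacnb2, Cacnb3 and Scn2a, and without a mouse Cacna1i (without GF 7, SPF 30 or SPF 31, 0.0601 to 0.266), Cacnb1 (without GF 5, GF 6 or SPF 31, 0.0526 to 0.148) and Cacnb3 (without GF 5, GF 7 or SPF 31, 0.0568 to 0.0642).

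In OPC there were 7 of 26 (17.1% of all genes). Scn3a 0.8 ± 0.28 (adjusted p = 0.0455) and Scn3b 1.92 ± 0.57 (adjusted p = 0.016) were more positive in PFC among the sodium channel genes. Cacna2d1 0.99 ± 0.22 (adjusted p = 0.00153) and Cacnb2 1.1 ± 0.4 (adjusted p = 0.0479) were more positive in PFC among the auxiliary genes of calcium channels. Cacnb1 -2.39 ± 0.52 (adjusted p = 0.000991) and Cacnb3 -1.85 ± 0.48 (adjusted p = 0.00538) were more negative in PFC among the auxiliary genes of calcium channels, as was the TARP gene Cacng4, at -0.75 ± 0.19 (adjusted p = 0.00514). Library totals ended those of Cacnb2 (adjusted p = 0.0904) and Scn3a (0.0891). The correction ended Cacna2d1, Cacnb2, Cacnb3, Cacng4 and Scn3a here, and leaving out a mouse ended Cacnb2 (without CGF 17, GF 7, SPF 30, SPF 31 or SPF 32, 0.0619 to 0.258), Cacng4 (without GF 5, 0.0503), Scn3a (without CGF 17, GF 5, GF 7, SPF 30 or SPF 32, 0.065 to 0.191) and Scn3b (without GF 6, SPF 30 or SPF 32, 0.0601 to 0.0779).

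In microglia there were 3 of 23 (10% of all genes). Scn2a 1.02 ± 0.26 (adjusted p = 0.01) and Scn3b 2.1 ± 0.65 (adjusted p = 0.0326) were more positive in PFC among the sodium channel genes. Cacna2d1 0.92 ± 0.31 (adjusted p = 0.0483) was more positive in PFC among the auxiliary genes of calcium channels. Of these, Cacna2d1, Scn2a and Scn3b were lost with the correction, and Cacna2d1 (without GF 6, GF 7, SPF 30 or SPF 31, 0.0908 to 0.222) and Scn3b (without GF 5, GF 6, SPF 30, SPF 31 or SPF 32, 0.0603 to 0.101) without a mouse.

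The sign does not say in which region a gene changed. Cacnb3 in excitatory neurons, for example, fell in PFC and stood at -0.05 ± 0.14 in Hip, whereas Cacna2d1 fell in Hip and rose in PFC. No sample of a group of 3 was tested as standing apart, since groups of 3 are too small for that test.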

How the results depend on the processing

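Of the named calls, 60 of 115 for GF against SPF, 52 of 63 for Hip against PFC and 9 of 34 interactions kept their direction and an adjusted p under 0.05 under every alternative run. For GF against SPF, calls lost or turned numbered 34 with nuclei assigned by their own markers, 31 with the length and GC correction, 9 by DESeq2, 8 with libraries thinned to a common depth, 8 without a count filter, 6 at a finer clustering, 4 with library totals, 3 with a stricter nucleus filter, 1 without likely doublets, 1 with the 6 mice compared alone and 0 with DESeq2's size factors. Interaction calls lost or turned numbered 19 with the length and GC correction, 14 with library totals and 4 with DESeq2's size factors. They numbered 2 by DESeq2 and 7 at a common depth (Cacna1d, Cacnb4 and Scn4b in excitatory neurons, Cacna1h, Cacna2d1, Cacna2d4 and Cacng4 in interneurons).

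Values that reversed with the length and GC correction were, for GF against SPF, Cacna1a in OPC of PFC (0.17), Cacna1b in excitatory neurons of PFC (0.07), Cacna1b in interneurons of PFC (0.01), Cacna1c in OPC of Hip (0.03), Cacna1c in oligodendrocytes of Hip (0.44) and Cacng3 in interneurons of PFC (0.19), for the interaction, Cacna1h in excitatory neurons (0.29, with the block 0.29), Cacna1i in excitatory neurons (0.35, with the block 0.35), Cacna2d1 in interneurons (-0.03, with the block -0.0), Cacnb2 in interneurons (-0.06, with the block -0.05) and Cacnb4 in interneurons (-0.0, with the block -0.0), and for Hip against PFC in excitatory neurons, Cacna1a in SPF (0.5, with the block 0.49), Cacna1a in CGF (0.51, with the block 0.51) and Cacna1b in CGF (0.03, with the block 0.03). Cacnb2 in oligodendrocytes of PFC reversed with the own-marker assignment (0.08) and the interaction of Cacna1d in excitatory neurons with library totals (-0.1), and the cause was not tested. The count of CGF against SPF calls in Hip neurons, 0, was 2 by DESeq2 and 1 without a count filter. The 3 genes of interneurons that differed between regions in all 3 groups were 5 by DESeq2 and 6 with the correction, alone or with the block, and 1 to 3 with a mouse left out (1 without GF mouse 5 or 6). The 6 such genes summed over the 4 glial types were 3 with the correction, 1 at a common depth and 1 to 6 with a mouse left out (1 without GF mouse 6, 3 without GF mouse 5, GF mouse 7 or SPF mouse 31). The 16 interactions in interneurons were 10 to 16 with a mouse left out (10 without GF mouse 7 or SPF mouse 31), and the 24 of the 4 glial types were 7 with the correction, 12 with the correction and the block and 10 at a common depth.

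With the mouse as replicate block, the 6 glial genes that differed between regions were 10, the interaction of Cacna1d in excitatory neurons was lost (adjusted p = 0.071), and those of Cacna1s (0.0383) and Cacna2d4 (0.00772) in excitatory neurons, Scn2b in interneurons (0.0495) and Cacnb4 in OPC (0.0365) were gained, and the block changed no other interaction call of a member. Depth limits the scarce members, since Scn10a, Scn11a, Scn4a and Cacna1s were under the count filter in most types.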

Other observations

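Cell types outside the group comparisons held some of the extreme levels, given as mean ± SD over the libraries of a region. Nuclei of PFC resembling striatal medium spiny neurons had 45.7 ± 26.8 CPM of the TARP gene Cacng5, and Vip interneurons had 31.3 ± 12.8 CPM in PFC. Ependymal cells of Hip had 8.09 ± 8.72 CPM of Cacna1s, the skeletal muscle L type pore, which was near 0 in most types. Mural cells of PFC had 62.1 ± 32.9 CPM of the T type pore Cacna1h beside their high Cacna1c. The numbers of these nuclei varied widely, with 14 to 145 ependymal nuclei in a Hip library and 26 to 69 mural nuclei in a PFC library, so no group comparison was made in them.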
